A study of Mus musculus with 3 samples.

Results

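Conventional dendritic cells (cDCs) and macrophages of the sciatic nerve were compared with each other. The members are all cells that the authors' cell table names cDC or Mac: 294 cDCs and 581 macrophages, or 875 of 11640 leukocytes. Both names come from the authors' clusters, 10 and 7. Cells were of the CD45+ fraction, meaning leukocytes, of nerves taken after perfusion of the heart from mice labelled NOD.AIRE GW/+ at 15 weeks of age. These mice carry an altered copy of Aire, a gene by which the thymus shows tissue antigens to T cells, on the autoimmune-prone NOD strain. There are 3 libraries of this 1 genotype: libraries 1 and 2 were sequenced from the 3′ end and library 3 from the 5′ end. Nerves of wild-type mice were not analysed here, so no value below measures an effect of the genotype. The labels do not say whether a library is 1 animal or a pool, so a p-value reflects only how much these 3 libraries vary. The study's title names a macrophage TNF axis, and the comparison asks which genes set the 2 myeloid classes apart.

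Dendritic cells and macrophages both take up material and show peptides on MHC class II. cDCs arise from a precursor that depends on the growth factor FLT3L, come as a cDC1 type that cross-presents to CD8 T cells and a cDC2 type that mainly serves CD4 T cells, and move to lymph nodes through CCR7 once mature. Macrophages depend on CSF1, stay in the tissue, clear dying cells and debris through scavenger, Fc and complement receptors, and digest them in lysosomes. In peripheral nerve they clear myelin and release cytokines and chemokines.

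Library 1 held most of the cells. cDCs numbered 232, 28 and 34 in libraries 1, 2 and 3 and macrophages 367, 106 and 108, so that there were 1.58, 3.79 and 3.18 macrophages per cDC. In this order the summed unique molecular identifiers (UMIs, each a counted transcript molecule) were 1984327, 305646 and 252576 in cDCs and 2529605, 931280 and 701173 in macrophages. Median UMIs per cell were 8561, 11398.5 and 7720.5 in cDCs and 7081, 9520 and 7437 in macrophages. No barcode of these 875 cells occurs in more than 1 library. Levels below are CPM (UMIs scaled to a total of 1000000) after TMM scaling. Values given in threes are libraries 1, 2 and 3. Library 3 stood apart in both classes. Sums over markers are in CPM before TMM scaling. The 8 T cell markers summed to 99.8, 16.4 and 546 CPM in cDCs and 139.5, 29.0 and 1017 CPM in macrophages. The 6 NK cell markers summed to 21.2, 6.54 and 114.8 CPM in cDCs and 34.4, 10.7 and 184 CPM in macrophages. Macrophage markers in macrophages summed to 40673, 82190.1 and 15039 CPM. Of this, Apoe made 18886, 48385 and 1800 CPM and C1qa 4475, 6211 and 322 CPM. Not all of these markers were lowest in library 3: Csf1r was 667, 526 and 685 CPM, and Lyz2 6947, 12878 and 7445 CPM. The 5 neutrophil markers in the table summed to 2.02, 0 and 0 CPM in cDCs and 139, 295 and 197 CPM in macrophages, with Ly6g at 0 in all 6 sums. The 7 B cell markers gave 11.9 to 140.3 CPM. Endothelial markers gave 9.82 to 80.6 CPM with the most in cDCs of library 1, mainly Kdr at 68.5 CPM, with Cdh5 at 0. Markers of mast cells and fibroblasts gave at most 3.22 CPM. Those of Schwann cells gave 47.5 to 123 CPM, mainly Mbp and, in macrophages of library 2, Pmp22. Markers of plasmacytoid dendritic cells summed to 822, 448 and 657 CPM in cDCs and 536, 518 and 560.5 CPM in macrophages, mainly Bst2, which many cells carry. One of them, Siglech, stood at 54.8, 35.5 and 15.0 CPM in cDCs and 2.94, 0 and 2.62 CPM in macrophages, scaled. A UMI of a T or B cell marker other than Cd4 and Igkc was held by 39.7, 17.9 and 50% of cDCs. In macrophages the shares were 41.4, 22.6 and 66.7%. Calls without these cells are given at the end as an alternative. What part any of these cell types takes in the differences below was not otherwise tested.

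Both names fitted most of their markers, which helped to define the classes and are given without a test. Those that recur below with a p-value, such as C1qb, share this limit. So do counts of called genes in lists that include markers, such as those of cDC-linked factors, lectins, complement genes and receptors for attractants. Flt3, the receptor for FLT3L, stood at 86.8, 224 and 183 CPM in cDCs and 1.26, 3.88 and 0 CPM in macrophages. Its macrophage counterpart Csf1r stood at 36.5, 35.5 and 86.1 CPM in cDCs and 709, 634 and 629 CPM in macrophages. The 6 shared cDC markers, among them Dpp4 and the transcription factor Zbtb46, summed to 459, 468 and 629.5 CPM in cDCs and 42.7, 12.9 and 55.6 CPM in macrophages. Genes of several cDC subtypes were present in the class cDC. Of cDC1 genes, the chemokine receptor Xcr1 was 113, 71.0 and 131 CPM in cDCs and 0 in all 3 libraries in macrophages. Clec9a, which senses dead cells, was 46.2, 71.0 and 86.1 CPM in cDCs and 10.9, 5.18 and 2.62 CPM in macrophages. Not all 8 cDC1 markers lay on the cDC side: Cadm1 was 22.8, 21.3 and 22.5 CPM in cDCs and 25.2, 58.2 and 3.93 CPM in macrophages. Of cDC2 genes, the lectin Cd209a was 63.4, 71.0 and 33.7 CPM in cDCs and 0, 1.29 and 2.62 CPM in macrophages. Of genes of mature, migrating cDCs, Ccr7 was 269, 1363 and 198 CPM in cDCs and 9.66, 0 and 18.3 CPM in macrophages. Fscn1, the actin bundler of dendrites, was 179, 721 and 442 CPM in cDCs and 2.94, 3.88 and 1.31 CPM in macrophages. Library 2 held the highest level of both in cDCs. In cells thinned to 2000 UMIs each, Xcr1 or Clec9a was seen in 21.1 ± 11.6% of cDCs (SD, n = 3), 1.03 ± 1.00% of macrophages and 0.224 ± 0.202% of B cells, a class that should lack them. Cd209a, Mgl2 or Clec10a was seen in 23.8 ± 4.21% of cDCs, 2.19 ± 1.13% of macrophages and 0.172 ± 0.151% of B cells. Ccr7, Fscn1 or Il4i1 was seen in 32.2 ± 3.10% of cDCs, 1.68 ± 1.49% of macrophages and 73.3 ± 15.1% of B cells, which carry Ccr7 themselves. Without thinning these cDC shares were 35.5 ± 7.55%, 33.3 ± 7.53% and 46.0 ± 1.69%. The monocyte gene Ly6c2 was 63.9, 28.4 and 59.9 CPM in cDCs and 359.6, 267 and 1006 CPM in macrophages. Sirpa and Itgam, listed as cDC2 markers, lay on the macrophage side here: Sirpa was 42.6, 46.1 and 59.9 CPM in cDCs and 268, 499.6 and 280.2 CPM in macrophages. Itgam was 36.0, 39.0 and 67.4 CPM in cDCs and 201, 211 and 186 CPM in macrophages.

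Of 6419 genes tested, 446 were higher in cDCs (6.95%) and 675 higher in macrophages (10.5%) at an adjusted p under 0.05 in edgeR's quasi-likelihood test with the library as a block. The classes did not overlap over the 3 libraries in 362 and 559 of these, and in 697 (10.9%) and 838 (13.1%) of all tested genes. Differences were large: 85 genes were over 8-fold higher in cDCs and 136 over 8-fold higher in macrophages, by fitted values. The median log2 fold change of all tested genes was 0.0013 (cDC minus Mac throughout). Genes higher in cDCs took 17.2, 20.4 and 17.8% of cDC UMIs and 8.43, 8.51 and 10.2% of macrophage UMIs. Genes higher in macrophages took 23.8, 25.1 and 19.7% of macrophage UMIs and 8.12, 5.94 and 7.08% of cDC UMIs. The authors' classes were drawn from these same counts, so the p-values are too small and do not bear on whether the classes are real. Without library 1 the 28 and 34 cDCs of the other libraries remained, 5310 genes were tested, and 103 and 139 were called, of which 100 and 138 had been called with all libraries. With library 2 left out, 8260 genes were tested, and 512 and 689 were called. With library 3 left out, 7867 were tested, and 688 and 922 were called. Each fit tested its own set of genes, so list counts without a library can include members not tested over the 3 libraries. Sentences on a library left out give, in parentheses, the log2 fold change without it and, where a call changed, its adjusted p.

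**Figure D1:**
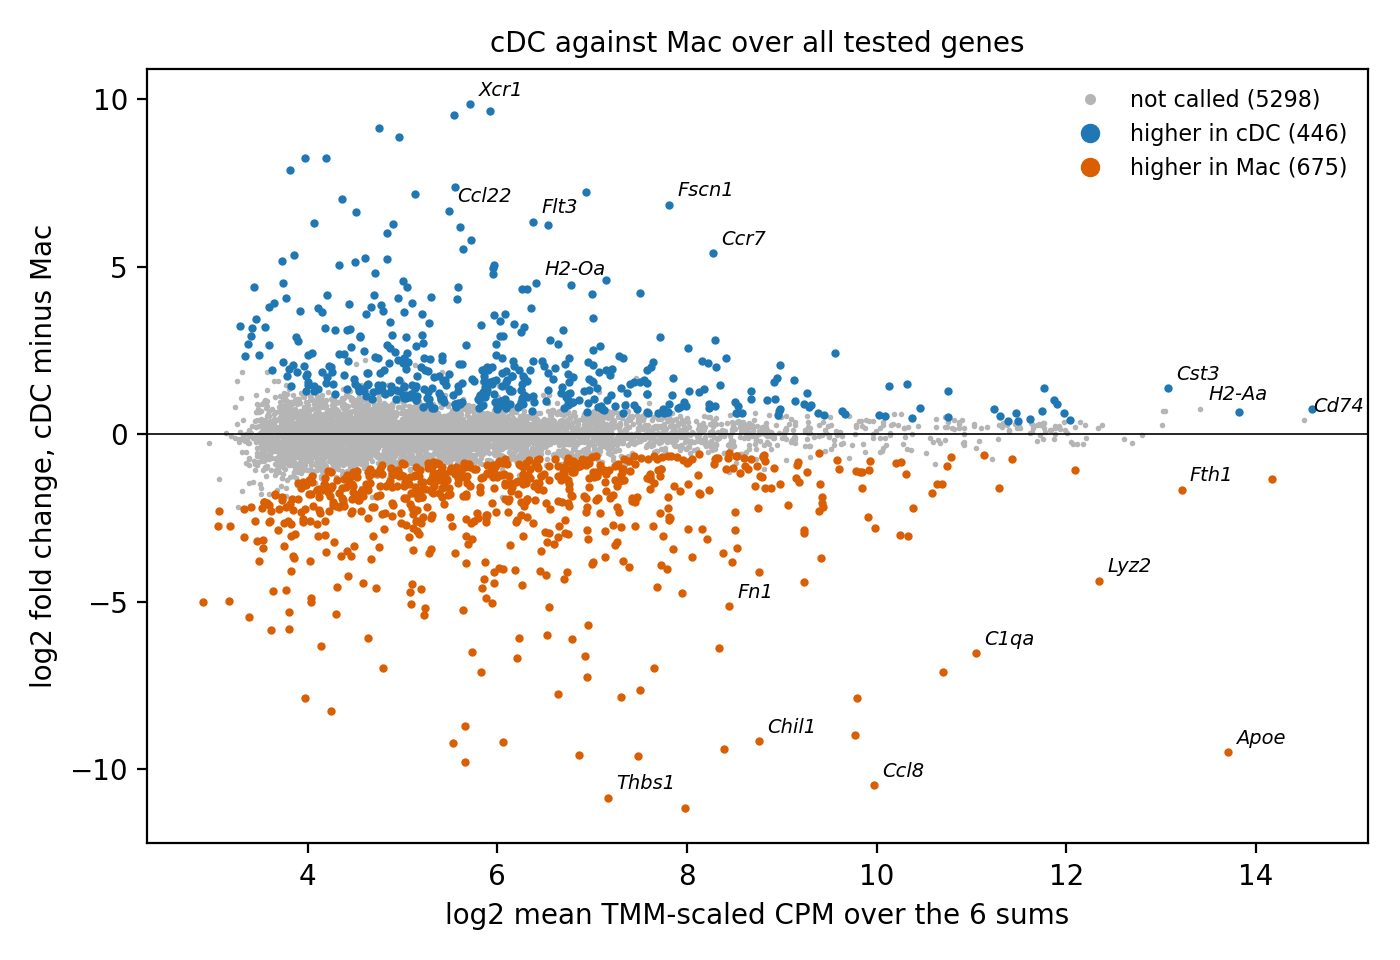
Each point is 1 of 6419 tested genes, by its log2 mean level in TMM-scaled CPM over the 6 sums (x axis) and its log2 fold change of cDC minus Mac (y axis); blue points are the 446 genes called higher in cDC, orange points the 675 called higher in Mac, grey points were not called. Fitted values of genes with no UMI in 1 class, such as Xcr1 and Thbs1, depend on the prior count.

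Of the 12 genes with the largest differences on the cDC side, cell type markers set aside, macrophages held no UMI of 6. Cldn1, which codes for the tight junction protein claudin-1 (chromosome 16, bases 26356642 to 26371841 in the GENCODE M21 annotation of build GRCm38), stood at 74.6, 74.5 and 131 CPM in cDCs and 0 in all 3 libraries in macrophages, and was at least 111-fold higher in cDCs over the pooled libraries when a count of 0 is set to its limit of 3 UMIs over the class (adjusted p = 0.000145, edgeR). Ffar4, a receptor for long-chain fatty acids, was 43.6, 42.6 and 101 CPM in cDCs and 0 in all 3 libraries in macrophages (at least 68.2-fold). Ppp1r14a, an inhibitor of a myosin phosphatase, was 82.7, 56.8 and 22.5 CPM in cDCs and 0 in all 3 libraries in macrophages (at least 101-fold). The bounds were at least 51.3-fold for Adam23, at least 47.5-fold for Ctnnd2, a catenin, and at least 37.7-fold for Gcsam. All 3 libraries of cDCs held these genes and none of macrophages did. Epcam, an epithelial adhesion molecule also found on Langerhans cells, was 111, 106 and 71.1 CPM in cDCs and 1.26, 0 and 2.62 CPM in macrophages (adjusted p = 7.15e-05, log2 fold change 6.18 ± 0.45). Serpinb6b, a protease inhibitor, was 93.9, 351 and 105 CPM in cDCs and 2.10, 0 and 2.62 CPM in macrophages (adjusted p = 9.69e-05, log2 fold change 6.24 ± 0.49), with library 2 the highest. Mreg, which regulates organelle transport, was 15.2, 199 and 67.4 CPM in cDCs and 0, 1.29 and 0 CPM in macrophages, a pooled ratio of 170.2 (counting interval 29.9 to 6788). Snx22, a sorting nexin, had a ratio of 85.1 (counting interval 23.0 to 712), Sept3, a septin, of 218 (counting interval 38.4 to 8663) and H2-Eb2 of 128 (counting interval 22.3 to 5107). Of the authors' 10 classes, 8 had at least 20 cells in each library: B, Cd4, Cd8, Mac, Mixed, Treg, cDC and gdT/NK/NKT. The rest were not compared, and none of the 8 is named for plasmacytoid dendritic cells. Among the 8, 10 of these 12 genes had their highest mean level in cDCs. The exceptions were H2-Eb2, highest in B cells (137.8 CPM against 44.7 in cDCs, unscaled), and Serpinb6b, highest in the class gdT/NK/NKT (214 against 176 CPM). Ppp1r14a (7.38, 0.052) and Ctnnd2 (7.34, 0.052) lost their calls, Adam23, Gcsam and Sept3 fell below the filter, and Serpinb6b (7.12) moved by over 1.5 times without library 1. Cldn1 was at least 54.6-fold, Ffar4 at least 38.0-fold, Ppp1r14a at least 21.4-fold, Adam23 at least 14.6-fold, Ctnnd2 at least 20.5-fold, Gcsam at least 15.6-fold, Snx22 at least 39.0-fold, Sept3 at least 17.5-fold and H2-Eb2 at least 30.2-fold apart on pooled UMIs without library 1. Serpinb6b (5.39) moved by over 1.5 times without library 2. Mreg was at least 23.1-fold apart on pooled UMIs without library 2.

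On the macrophage side, cDCs held no UMI of 6 of the 12 genes. Thbs1, for the matrix protein thrombospondin-1, stood at 0 in all 3 libraries in cDCs and 179, 533 and 149 CPM in macrophages, at least 194-fold higher in macrophages. Ccl8, a chemokine that draws monocytes and T cells, was 1.01, 0 and 3.74 CPM in cDCs and 1835, 3801 and 398 CPM in macrophages, a pooled ratio of 1549.6 (counting interval 530 to 7516). Chil1, for a chitinase-like protein, was 2.03, 0 and 0 CPM in cDCs and 973, 795 and 835 CPM in macrophages (adjusted p = 1.03e-05, log2 fold change −9.16 ± 0.36). In cells thinned to 2000 UMIs Chil1 was seen in 61.2 ± 5.94% of macrophages, 0.147 ± 0.254% of cDCs and 0.260 ± 0.451% of B cells. Cxcl13, the B cell chemokine, was 7.61, 0 and 0 CPM in cDCs and 3466, 1624 and 161 CPM in macrophages (adjusted p = 1.03e-05, log2 fold change −8.98 ± 0.34). Apoc1, an apolipoprotein, was 1.01, 0 and 0 CPM in cDCs and 554, 1276 and 191 CPM in macrophages. Ms4a7, a tetraspan membrane protein of macrophages, was 0.507, 0 and 0 CPM in cDCs and 417, 586 and 68.1 CPM in macrophages. Saa3, for an acute-phase protein, was 0.507, 0 and 0 CPM in cDCs and 462, 223 and 13.1 CPM in macrophages. Of the macrophages, those of library 3 were the lowest for Cxcl13, Apoc1, Ms4a7, Saa3 and Ccl8. Hal, for histidase, which breaks down histidine, was 0 in all 3 libraries in cDCs and 105, 137 and 61.5 CPM in macrophages (at least 81.9-fold). Klra2, a Ly49 family receptor, was 0 in all 3 libraries in cDCs and 58.4, 107 and 113 CPM in macrophages (at least 62.7-fold). Gdf15, a stress-induced hormone, was 0 in all 3 libraries in cDCs and 23.1, 254 and 26.2 CPM in macrophages, with library 2 the highest (at least 55.2-fold). The kinase Fam20c (at least 29.1-fold) and Aoah, an enzyme that inactivates endotoxin (at least 23.0-fold), also had no UMI in cDCs. All 12 genes had their highest mean level of the 8 classes in macrophages. Fam20c (−7.40, 0.0652) and Aoah (−7.20, 0.0752) lost their calls, Saa3 fell below the filter, and Chil1 (−11.73) and Cxcl13 (−11.90) moved by over 1.5 times without library 1. Thbs1 was at least 60.0-fold, Apoc1 at least 129-fold, Ms4a7 at least 57.6-fold, Saa3 at least 20.7-fold, Hal at least 17.4-fold, Klra2 at least 19.3-fold, Gdf15 at least 24.6-fold, Fam20c at least 6.95-fold and Aoah at least 6.04-fold apart on pooled UMIs without library 1. Thbs1 was at least 124-fold and Gdf15 at least 17.3-fold apart on pooled UMIs without library 2. Ccl8 was 2417-fold apart on pooled UMIs without library 3.

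**Figure D2:**
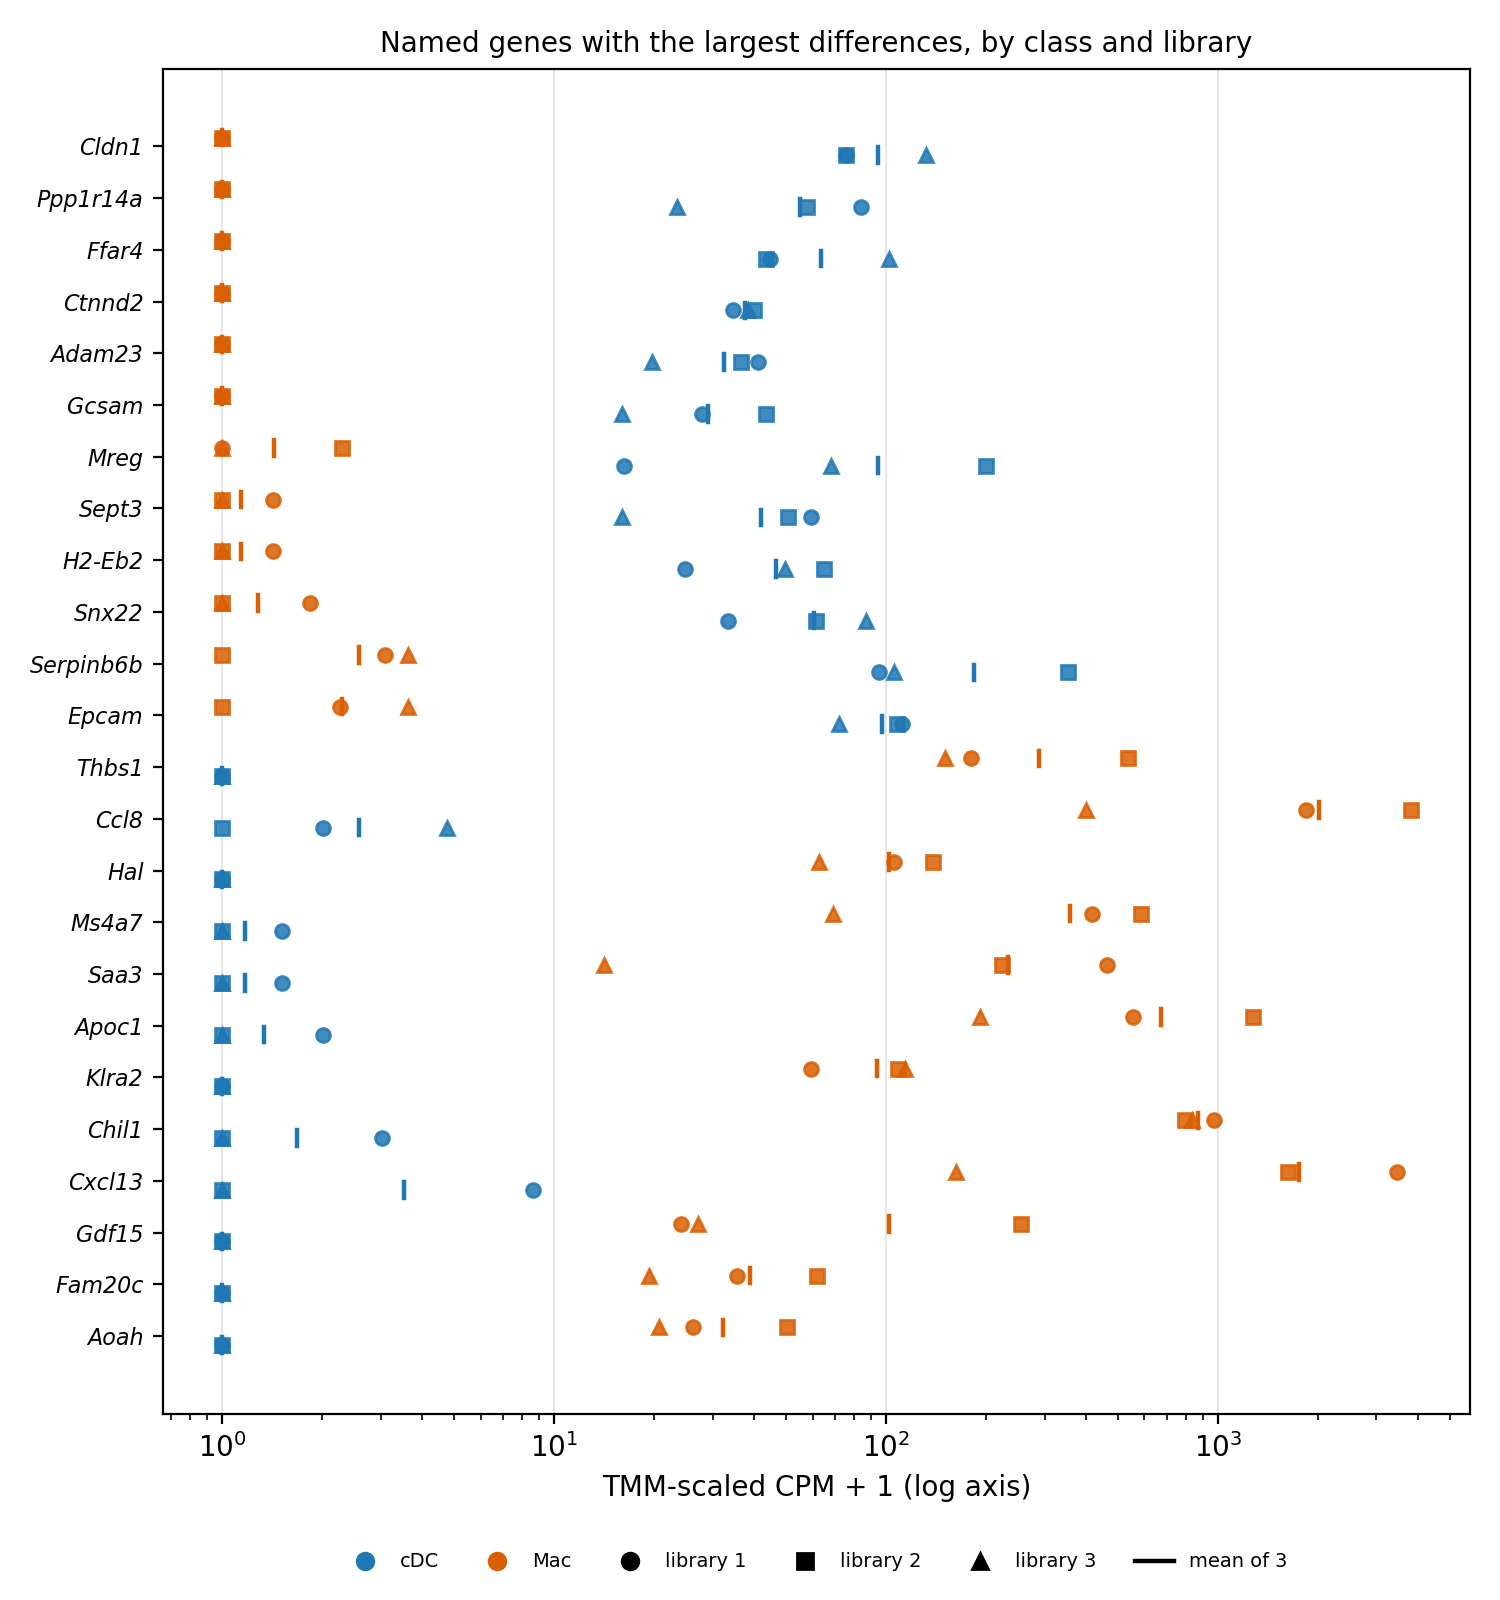
TMM-scaled CPM plus 1 (log axis) of the 24 genes with the largest differences in each sum of cDCs (blue) and macrophages (orange); circles, squares and triangles are libraries 1, 2 and 3 and vertical bars the mean of the 3. The rule that chose these genes required that the 2 classes not overlap. In the lower class most points sit at 0 CPM.

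Sequence upstream of 4 genes with large differences is shown for context; they were picked after their values were seen, because they hold 1 or more of 3 short motifs that were searched. Each run is the 250 bases before the gene's RefSeq start (build GRCm38.p6), 5′ to 3′ on the gene's strand, with motif matches in capitals. The motifs, sought on both strands, were TGANTCA (AP-1), TTGCNNAA (C/EBP) and GAAANNGAA (part of an interferon response element). Itgax lies at chr7:128129300-128129549, plus strand, Hal at chr10:93488518-93488767, plus strand, Saa3 at chr7:46715677-46715926, minus strand and Trem2 at chr17:48346151-48346400, plus strand.
Itgax: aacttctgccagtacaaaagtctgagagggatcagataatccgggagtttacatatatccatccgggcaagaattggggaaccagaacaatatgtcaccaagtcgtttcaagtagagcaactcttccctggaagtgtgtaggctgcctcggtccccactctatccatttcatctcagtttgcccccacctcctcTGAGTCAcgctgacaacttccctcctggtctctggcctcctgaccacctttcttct
Hal: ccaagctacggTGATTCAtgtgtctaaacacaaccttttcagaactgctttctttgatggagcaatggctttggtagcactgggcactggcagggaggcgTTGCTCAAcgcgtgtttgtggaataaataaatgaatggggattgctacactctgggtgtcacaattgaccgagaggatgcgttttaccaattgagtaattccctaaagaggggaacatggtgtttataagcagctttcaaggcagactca
Saa3: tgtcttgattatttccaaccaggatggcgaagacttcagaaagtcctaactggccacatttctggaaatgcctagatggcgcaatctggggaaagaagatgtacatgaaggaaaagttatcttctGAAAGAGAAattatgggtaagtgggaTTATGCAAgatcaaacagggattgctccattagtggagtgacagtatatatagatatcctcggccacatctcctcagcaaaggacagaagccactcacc
Trem2: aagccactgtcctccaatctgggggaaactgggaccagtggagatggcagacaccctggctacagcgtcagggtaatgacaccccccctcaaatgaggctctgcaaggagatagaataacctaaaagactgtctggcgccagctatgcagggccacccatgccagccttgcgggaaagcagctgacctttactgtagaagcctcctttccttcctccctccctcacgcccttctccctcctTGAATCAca
In Itgax, the integrin gene that is a cDC marker, TGAGTCA begins 56 bases before the start, and in Trem2, a macrophage lipid receptor gene, TGAATCA begins 9 bases before it. Hal holds TGATTCA at 239 and TTGCTCAA at 150 bases, and Saa3 GAAAGAGAA at 125 and TTATGCAA, a match on the other strand, at 99 bases. No 2 of these matches overlap. These matches are descriptions of letters, not of binding. Over the 5122 tested genes with a promoter in the table, TGANTCA was found in 5.51% of promoters, in 5.40% of 352 genes higher in cDCs and 9.16% of 535 genes higher in macrophages. TTGCNNAA was found in 9.39%, 12.5% and 12.9%, and GAAANNGAA in 8.34%, 9.66% and 14.0%. Among all 27025 promoters the shares were 7.82%, 10.8% and 8.18%, in the order of the motifs.

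The classical MHC class II genes, whose products present peptides to CD4 T cells, stood at near levels in both classes of libraries 1 and 2, while H2-Oa, H2-Ob and H2-DMb2, which tune peptide loading, were higher in cDCs. The level of H2-Aa, an antigen-binding chain, was 8176, 15388 and 15737 CPM in cDCs and 8123, 15082 and 3004 CPM in macrophages, and that of H2-Ab1, its partner chain, 8786, 11721 and 6777 CPM in cDCs and 7924, 12984 and 1537 CPM in macrophages. Within libraries 1 and 2 the classes were nearly level: the log2 ratio of cDC over Mac for H2-Aa was 0.0093 and 0.029. In library 3 it was 2.39, and macrophages there held the lowest level of the 6 sums. The same ratios for H2-Eb1 were −0.062, −0.15 and 2.44, and for Cd74, the invariant chain, −0.15, −0.46 and 1.96. None of the 4 was called over the 3 libraries (H2-Aa: adjusted p = 0.27, log2 fold change 0.77, 95% interval −0.19 to 1.73; Cd74: adjusted p = 0.544, log2 fold change 0.42, 95% interval −0.50 to 1.33; adjusted p = 0.281 for H2-Ab1 and 0.362 for H2-Eb1). H2-Oa, a chain of the DO protein that restrains peptide exchange, was 175, 159.7 and 157 CPM in cDCs and 10.5, 2.59 and 5.24 CPM in macrophages (adjusted p = 6.83e-05, log2 fold change 4.51 ± 0.32). Its partner H2-Ob was 78.1, 56.8 and 74.9 CPM in cDCs and 11.8, 0 and 0 CPM in macrophages (adjusted p = 0.00348, log2 fold change 3.57 ± 0.59). Both were apart in every library. H2-DMb2, a chain of the peptide exchanger DM, was 293, 295 and 1029.7 CPM in cDCs and 45.8, 46.6 and 342 CPM in macrophages (adjusted p = 0.000526, log2 fold change 2.27 ± 0.25): higher in cDCs of each library, though macrophages of library 3 passed cDCs of libraries 1 and 2. Its alternative chain H2-DMb1 was 584, 937 and 356 CPM in cDCs and 636, 1019 and 179 CPM in macrophages (adjusted p = 0.621, log2 fold change 0.20, 95% interval −0.33 to 0.73). Ciita, the master activator of class II genes, was 283, 146 and 142 CPM in cDCs and 145, 95.8 and 47.1 CPM in macrophages (adjusted p = 0.0154, log2 fold change 1.02 ± 0.23). Ctss, the cathepsin that trims the invariant chain, went the other way, at 1233, 1079 and 1296 CPM in cDCs and 3888, 5068 and 2436 CPM in macrophages (adjusted p = 0.00173, log2 fold change −1.60 ± 0.23). Of 14 class II genes in the table, 13 were tested, of which 5 were higher in cDCs, 1 higher in macrophages and 7 not called (46.2% called). Class II genes had a median log2 fold change of 0.69, and without library 1, 2 or 3 the counts were 4 and 0, 9 and 1, and 5 and 2. Of all tested genes 17.5% were called in either direction. Ciita (1.08, 0.209) and Ctss (−1.56, 0.0995) lost their calls and H2-Oa (5.28) and H2-Ob (8.12) moved by over 1.5 times without library 1. H2-Aa (1.21, 0.0261), H2-Ab1 (1.15, 0.0162) and H2-Eb1 (1.20, 0.037) passed the threshold without library 2. Cd74 (−0.30, 0.00592) passed the threshold without library 3.

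**Figure D3:**
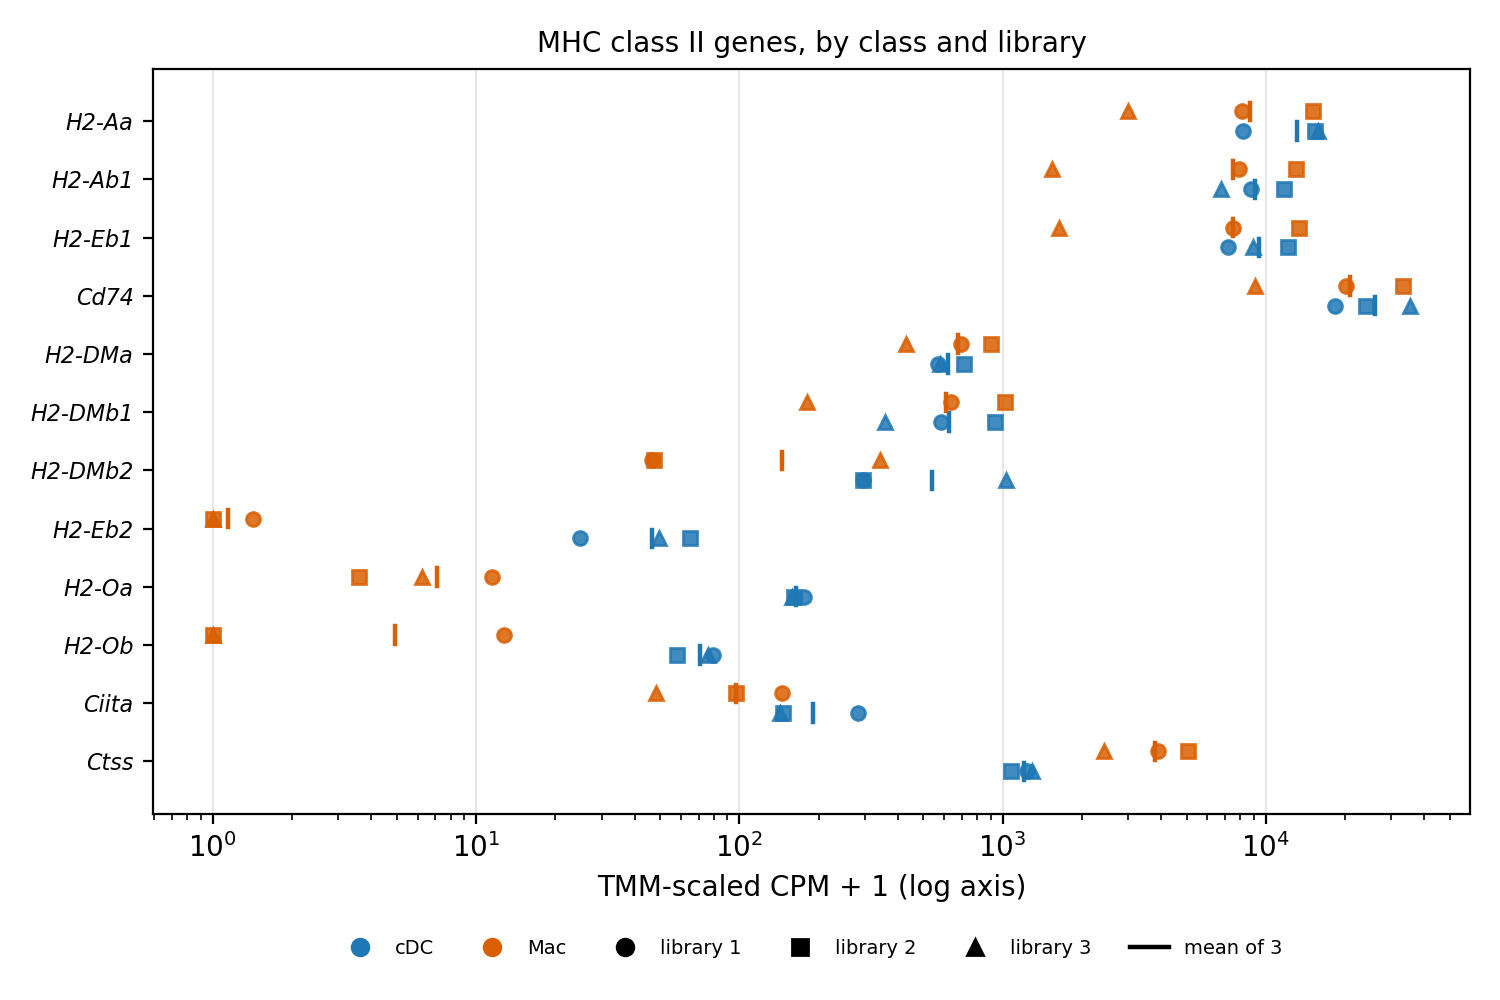
TMM-scaled CPM plus 1 (log axis) of 12 tested MHC class II genes, all but March1, in each sum, with cDCs in blue and macrophages in orange, libraries 1, 2 and 3 as circles, squares and triangles, and bars for the mean of the 3. H2-Aa, H2-Ab1 and H2-Eb1 nearly coincide in libraries 1 and 2, where Cd74 is somewhat higher in macrophages (log2 ratio −0.15 and −0.46). H2-Oa and H2-Ob are apart in all 3 libraries.

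Class I genes, which serve presentation to CD8 T cells, were called about as often as genes at large, of which 17.5% were called. H2-K1, a class I heavy chain gene, was 1407, 2499 and 633 CPM in cDCs and 1902, 2563 and 660 CPM in macrophages (adjusted p = 0.452, log2 fold change −0.18, 95% interval −0.51 to 0.14). Tap1, a peptide transporter, was 225, 369 and 348 CPM in cDCs and 159.6, 171 and 192 CPM in macrophages (adjusted p = 0.0207, log2 fold change 0.80 ± 0.19). Wdfy4, which cDC1 need for cross-presentation and which is also a marker of theirs, was 240, 142 and 176 CPM in cDCs and 28.1, 18.1 and 18.3 CPM in macrophages (adjusted p = 6.32e-05, log2 fold change 3.10 ± 0.21). Of 15 class I genes in the table, 15 were tested, of which 2 were higher in cDCs, 0 higher in macrophages and 13 not called (13.3% called). Class I genes had a median log2 fold change of 0.11, and without library 1, 2 or 3 the counts were 1 and 0, 1 and 0, and 4 and 1. Ligands for T cell costimulation were called in both directions. Cd86, a ligand of CD28, was 255, 327 and 127 CPM in cDCs and 220.1, 277 and 89.0 CPM in macrophages (adjusted p = 0.316, log2 fold change 0.30, 95% interval −0.11 to 0.71), and the receptor Cd40 106, 202 and 213 CPM in cDCs and 85.7, 132 and 158 CPM in macrophages (adjusted p = 0.151, log2 fold change 0.44, 95% interval 0.02 to 0.86). Icosl, the ligand of ICOS, was 51.2, 128 and 112 CPM in cDCs and 20.2, 22.0 and 24.9 CPM in macrophages (adjusted p = 0.00207, log2 fold change 1.90 ± 0.28). Tnfsf9, for 4-1BB ligand, was 89.8, 209 and 607 CPM in cDCs and 18.5, 90.6 and 131 CPM in macrophages (adjusted p = 0.00103, log2 fold change 1.92 ± 0.25). Vsir, for the inhibitory ligand VISTA, lay on the macrophage side at 28.9, 14.2 and 56.2 CPM in cDCs and 108, 124 and 145 CPM in macrophages (adjusted p = 0.00194, log2 fold change −1.94 ± 0.28). Cd274, for PD-L1, was 86.8, 199 and 71.1 CPM in cDCs and 122, 114 and 102 CPM in macrophages (adjusted p = 0.913, log2 fold change −0.07, 95% interval −0.72 to 0.58). Of 18 costimulatory and inhibitory genes in the table, 13 were tested, of which 4 were higher in cDCs, 2 higher in macrophages and 7 not called (46.2% called). Costimulatory and inhibitory genes had a median log2 fold change of 0.30, and without library 1, 2 or 3 the counts were 1 and 0, 6 and 1, and 5 and 3. Cd70 and Tnfsf4, ligands that sustain T cells, were not tested: 16 UMIs of each came from the 28 cDCs of library 2. cDCs of libraries 1 and 3 held 4 and 1 UMIs of Cd70 and 0 of Tnfsf4, and macrophages 0 of both. Tap1 (1.00, 0.102), Tnfsf9 (1.75, 0.0627) and Vsir (−2.01, 0.107) lost their calls without library 1. Tap1 (0.67, 0.0778) lost its call without library 2.

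Chemokine transcripts stood mostly on the macrophage side. Of 22 chemokine genes in the table, 17 were tested, of which 1 was higher in cDCs, 14 higher in macrophages and 2 not called (88.2% called). Chemokine genes had a median log2 fold change of −1.92, and without library 1, 2 or 3 the counts were 1 and 10, 2 and 15, and 2 and 17. The counts without library 3 include members not tested over the 3 libraries. The monocyte chemokine Ccl2 was 7.10, 31.9 and 56.2 CPM in cDCs and 176, 647 and 351 CPM in macrophages (adjusted p = 0.0002, log2 fold change −3.89 ± 0.36), and its relative Ccl12 1.01, 7.10 and 0 CPM in cDCs and 347, 292 and 445 CPM in macrophages (adjusted p = 3.76e-05, log2 fold change −7.63 ± 0.47). Ccl7, also a ligand of CCR2, was 1.01, 0 and 0 CPM in cDCs and 68.9, 215 and 34.0 CPM in macrophages, a pooled ratio of 109 (counting interval 29.9 to 901). All libraries of macrophages exceeded all of cDCs in these, as in 13.1% of all tested genes. The neutrophil chemokines followed: Cxcl1 was 0.507, 3.55 and 0 CPM in cDCs and 13, 163 and 45.8 CPM in macrophages, a ratio of 58.6 (counting interval 16.0 to 488), and Cxcl2 2.54, 192 and 232 CPM in cDCs and 247, 2271 and 1163 CPM in macrophages (adjusted p = 0.00225, log2 fold change −3.68 ± 0.55). Neutrophil markers summed to 139 to 295 CPM in macrophages and at most 2.02 CPM in cDCs, and their part in this was not tested. Cxcl10, which draws CXCR3-bearing T cells, was 269.9, 405 and 213 CPM in cDCs and 1058, 832 and 1333 CPM in macrophages (adjusted p = 0.00199, log2 fold change −1.87 ± 0.28). Cxcl9 was 926, 348 and 176 CPM in cDCs and 2346, 822 and 927 CPM in macrophages (adjusted p = 0.00169, log2 fold change −1.62 ± 0.23). Cxcl9 was higher in macrophages of each library, but cDCs of library 1 exceeded macrophages of library 2. Ccl5, a chemokine that T cells also make, was 369, 1182 and 1123 CPM in cDCs and 2992, 1896 and 1989 CPM in macrophages (adjusted p = 0.0417, log2 fold change −1.49 ± 0.42). In cells without a UMI of the T or B cell markers, a choice made after seeing the data, its log2 fold change was −1.02 (adjusted p = 0.157). Without the cDCs that hold Ccr7, chosen likewise, it was −3.82 (adjusted p = 2.85e-06). The exception was Ccl22, a ligand of CCR4 on regulatory and other T cells and a gene of mature cDCs. It was 89.3, 156 and 22.5 CPM in cDCs and 0.840, 1.29 and 0 CPM in macrophages, a ratio of 123 (counting interval 41.7 to 602). Ccl17, the other CCR4 ligand, was not tested: it had 305, 6 and 2 UMIs in cDCs and 4, 0 and 0 in macrophages. Cxcl16, a scavenger receptor and ligand of CXCR6, was 528, 774 and 535 CPM in cDCs and 959.8, 1077 and 517 CPM in macrophages (adjusted p = 0.166, log2 fold change −0.45, 95% interval −0.89 to −0.00). Cxcl10 (−1.80, 0.095), Cxcl9 (−1.78, 0.0599), Ccl5 (−0.74, 0.127) and Ccr7 (5.90, 0.0911) lost their calls and Ccl12 (−6.53) and Cxcl2 (−2.93) moved by over 1.5 times without library 1. Ccl7 was at least 21.9-fold apart on pooled UMIs without library 1. Ccl12 (−8.52) and Ccr7 (4.27) moved by over 1.5 times without library 2. Ccl7 was 65.8-fold apart on pooled UMIs without library 2. Cxcl16 (−0.67, 0.00383) passed the threshold and Ccl2 (−4.49), Cxcl2 (−4.43) and Ccr7 (6.17) moved by over 1.5 times without library 3.

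**Figure D4:**
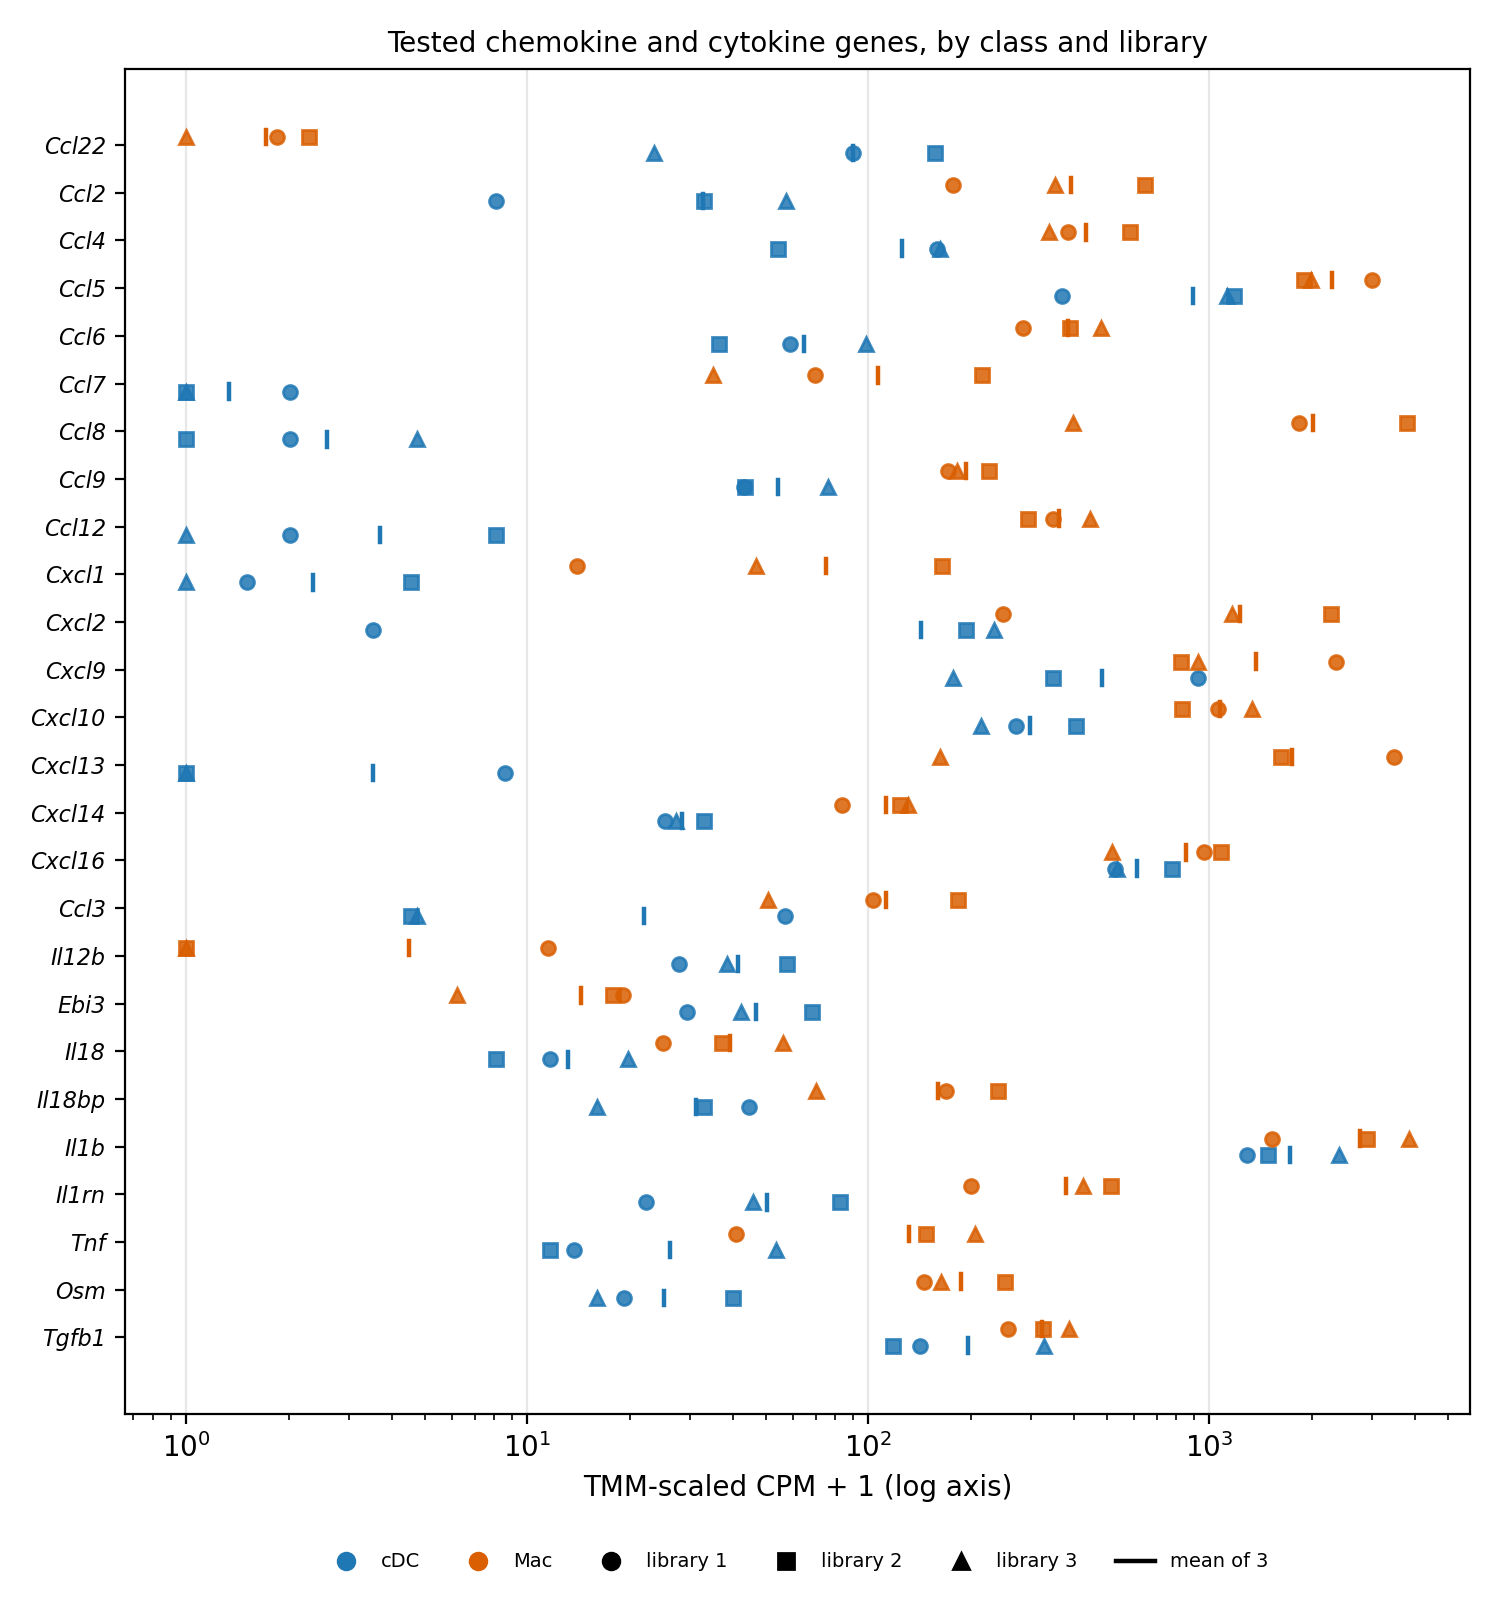
TMM-scaled CPM plus 1 (log axis) of 26 tested chemokine and cytokine genes in each sum of cDCs (blue) and macrophages (orange); circles, squares and triangles are libraries 1, 2 and 3, and bars the mean of the 3. Ccl22, Il12b and Ebi3 lie further right in cDCs, and most chemokines further right in macrophages.

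Receptors for attractants were called in both directions. Of 15 receptor genes in the table, 11 were tested, of which 4 were higher in cDCs, 5 higher in macrophages and 2 not called (81.8% called). Of those higher in cDCs, Ccr7 and Xcr1 are also cell type markers, which helped to define the classes. Receptor genes had a median log2 fold change of −0.77, and without library 1, 2 or 3 the counts were 2 and 3, 4 and 4, and 4 and 6. Besides Ccr7 and Xcr1, Gpr183, the oxysterol receptor that guides cDCs in lymphoid tissue, was higher in cDCs at 400.3, 334 and 247 CPM in cDCs and 103, 60.8 and 55.0 CPM in macrophages (adjusted p = 0.000185, log2 fold change 2.17 ± 0.20). Ccr6 was 36.5, 28.4 and 33.7 CPM in cDCs and 3.78, 0 and 1.31 CPM in macrophages (adjusted p = 0.00146, log2 fold change 3.76 ± 0.52). Cx3cr1, the fractalkine receptor of monocytes and tissue macrophages, was 53.8, 17.7 and 41.2 CPM in cDCs and 707, 544 and 234 CPM in macrophages (adjusted p = 0.000199, log2 fold change −3.68 ± 0.34). Ccrl2, a chemerin-binding receptor, was 224, 309 and 247 CPM in cDCs and 834, 1478 and 1024 CPM in macrophages (adjusted p = 9.38e-05, log2 fold change −2.06 ± 0.16). Cmklr1, the signalling chemerin receptor, was 2.03, 3.55 and 3.74 CPM in cDCs and 57.5, 72.5 and 79.9 CPM in macrophages (adjusted p = 8.78e-05, log2 fold change −4.61 ± 0.35). For these 3, each library of macrophages lay above each of cDCs, as in 13.1% of all tested genes. Ccr2, the receptor by which monocytes leave the blood, was present in both at 313, 153 and 505 CPM in cDCs and 437, 238 and 712 CPM in macrophages (adjusted p = 0.0583, log2 fold change −0.53, 95% interval −0.90 to −0.16). Of growth factor receptors other than Flt3 and Csf1r, Kit, the stem cell factor receptor, was 115, 56.8 and 139 CPM in cDCs and 1.68, 2.59 and 1.31 CPM in macrophages (adjusted p = 4.85e-05, log2 fold change 5.81 ± 0.38). The GM-CSF receptor gene Csf2ra was 158, 224 and 322 CPM in cDCs and 199, 264 and 259 CPM in macrophages (adjusted p = 0.798, log2 fold change −0.10, 95% interval −0.54 to 0.35), and its beta chain Csf2rb 260.3, 227 and 329 CPM in cDCs and 350.3, 313 and 305 CPM in macrophages (adjusted p = 0.399, log2 fold change −0.27, 95% interval −0.70 to 0.16). The TGF-beta receptor genes Tgfbr1 (adjusted p = 0.00163, log2 fold change −1.71 ± 0.24) and Tgfbr2 (adjusted p = 0.00149, log2 fold change −2.05 ± 0.28) were higher in macrophages. Of 21 growth factor and cytokine receptor genes in the table, 21 were tested, of which 3 were higher in cDCs, 7 higher in macrophages and 11 not called (47.6% called). Growth factor and cytokine receptor genes had a median log2 fold change of −0.27, and without library 1, 2 or 3 the counts were 3 and 2, 3 and 6, and 3 and 8. Ccr7 (5.90, 0.0911), Ccr6 (5.16, 0.0551), Tgfbr1 (−1.40, 0.108) and Tgfbr2 (−1.59, 0.106) lost their calls without library 1. Xcr1 was at least 53.6-fold apart on pooled UMIs without library 1. Ccr7 (4.27) moved by over 1.5 times without library 2. Ccr7 (6.17) moved by over 1.5 times without library 3.

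All 9 tested cytokine genes were called. Of 17 cytokine genes in the table, 9 were tested, of which 2 were higher in cDCs, 7 higher in macrophages and 0 not called (100% called). Cytokine genes had a median log2 fold change of −1.45, and without library 1, 2 or 3 the counts were 1 and 3, 1 and 6, and 2 and 8. The counts without library 3 include members not tested over the 3 libraries. Il12b, for the shared chain of IL-12 and IL-23, was 26.9, 56.8 and 37.4 CPM in cDCs and 10.5, 0 and 0 CPM in macrophages (adjusted p = 0.0481, log2 fold change 2.62 ± 0.76). Ebi3, a chain of IL-27 and IL-35, was 28.4, 67.4 and 41.2 CPM in cDCs and 18.1, 16.8 and 5.24 CPM in macrophages (adjusted p = 0.0481, log2 fold change 1.44 ± 0.42). Both adjusted p lie close to the threshold of 0.05. Tnf was 12.7, 10.6 and 52.4 CPM in cDCs and 39.9, 146 and 204 CPM in macrophages (adjusted p = 0.00253, log2 fold change −2.14 ± 0.33). It was higher in macrophages within each library, while cDCs of library 3 exceeded macrophages of library 1. At 2000 UMIs a cell, 18.5 ± 8.28% of macrophages held a UMI of Tnf, against 7.15 ± 5.75% of cDCs and 1.49 ± 0.658% of B cells. At 1000 UMIs a cell these shares were 8.64 ± 4.74%, 6.14 ± 5.21% and 0.499 ± 0.490%. Il1b, the inflammatory cytokine, was high in both classes at 1287, 1487 and 2393 CPM in cDCs and 1522, 2904 and 3843 CPM in macrophages (adjusted p = 0.0276, log2 fold change −0.63 ± 0.16), and seen in 68.4 ± 8.59% of thinned macrophages, 59.1 ± 6.55% of cDCs and 1.38 ± 1.41% of B cells. The libraries of the 2 classes overlapped. The gene of its antagonist, Il1rn, was 21.3, 81.6 and 44.9 CPM in cDCs and 198, 515 and 426 CPM in macrophages (adjusted p = 7.15e-05, log2 fold change −3.03 ± 0.22), while Il1r2, the IL-1 decoy receptor, was higher in cDCs at 32.5, 81.6 and 26.2 CPM in cDCs and 0.840, 7.77 and 3.93 CPM in macrophages (adjusted p = 0.000795, log2 fold change 3.81 ± 0.46). Il18 was 10.7, 7.10 and 18.7 CPM in cDCs and 23.9, 36.2 and 55.0 CPM in macrophages (adjusted p = 0.0169, log2 fold change −1.45 ± 0.33). Il18bp, its soluble inhibitor, was 43.6, 31.9 and 15.0 CPM in cDCs and 168, 238 and 69.4 CPM in macrophages (adjusted p = 0.000583, log2 fold change −2.23 ± 0.26). Osm, for oncostatin M, was 18.3, 39.0 and 15.0 CPM in cDCs and 144, 249.8 and 162 CPM in macrophages (adjusted p = 0.000102, log2 fold change −2.96 ± 0.24). Ebi3 (2.33, 0.0685), Tnf (−2.56, 0.0587), Il1b (−0.81, 0.112) and Il18 (−1.81, 0.132) lost their calls and Il12b (7.63) and Il1r2 (3.12) moved by over 1.5 times without library 1. Ebi3 (1.20, 0.0946) and Il1b (−0.45, 0.205) lost their calls and Il12b (2.03) moved by over 1.5 times without library 2.

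Besides Tnf, its sheddase gene Adam17 and its receptor gene Tnfrsf1b were higher in macrophages, and Traf1 and Ltb in cDCs. Adam17, which releases TNF from the membrane, was 58.9, 42.6 and 52.4 CPM in cDCs and 147, 128 and 129.6 CPM in macrophages (adjusted p = 0.00211, log2 fold change −1.38 ± 0.21). Tnfrsf1b, for TNF receptor 2, was 20.3, 106 and 93.6 CPM in cDCs and 55.9, 182 and 203 CPM in macrophages (adjusted p = 0.00816, log2 fold change −1.13 ± 0.22), higher in macrophages of each library though the classes overlapped. Traf1, an adaptor and NF-kB target, was 322, 731 and 419 CPM in cDCs and 82.8, 94.5 and 147 CPM in macrophages (adjusted p = 0.000969, log2 fold change 2.13 ± 0.27). Ltb, for lymphotoxin beta, was 145, 49.7 and 105 CPM in cDCs and 12.2, 2.59 and 85.1 CPM in macrophages (adjusted p = 0.0384, log2 fold change 2.27 ± 0.62). Macrophages of library 3 held the T cell gene Cd3e at 297 CPM and were also the highest macrophages for Ltb. In cells without a UMI of T or B cell markers, Ltb was 4.20 (adjusted p = 0.000115). With equal cells in limma Ltb was not called (0.31, adjusted p = 0.12). That value is a difference of mean log2 values per cell and does not compare in size with edgeR's log2 fold change. On that scale Flt3 was 0.99, against 6.34 in edgeR. Of 14 genes of TNF signalling in the table, 13 were tested, of which 2 were higher in cDCs, 4 higher in macrophages and 7 not called (46.2% called). Genes of TNF signalling had a median log2 fold change of −0.30, and without library 1, 2 or 3 the counts were 0 and 0, 2 and 3, and 3 and 4. Of 18 genes of the NF-kB system in the table, 18 were tested, of which 5 were higher in cDCs, 1 higher in macrophages and 12 not called (33.3% called). Genes of the NF-kB system had a median log2 fold change of 0.01, and without library 1, 2 or 3 the counts were 1 and 0, 4 and 1, and 5 and 1. Relb, the subunit of the alternative NF-kB pathway and a marker of mature cDCs, was 130.4, 224 and 183 CPM in cDCs and 57.5, 84.1 and 70.7 CPM in macrophages (adjusted p = 0.00178, log2 fold change 1.31 ± 0.19). Rel, for c-Rel, was 459.7, 678 and 311 CPM in cDCs and 285, 303 and 196 CPM in macrophages (adjusted p = 0.0133, log2 fold change 0.84 ± 0.18). Tnip3, an inhibitor of NF-kB signalling, was 238, 309 and 202 CPM in cDCs and 84.4, 111 and 70.7 CPM in macrophages (adjusted p = 0.000732, log2 fold change 1.49 ± 0.18). Birc2, a ubiquitin ligase of this pathway, was 73.1, 245 and 52.4 CPM in cDCs and 29.8, 38.8 and 28.8 CPM in macrophages (adjusted p = 0.0091, log2 fold change 1.67 ± 0.33). The canonical members Nfkb1 (adjusted p = 0.549, log2 fold change −0.21, 95% interval −0.68 to 0.26) and Rela (adjusted p = 0.585, log2 fold change −0.25, 95% interval −0.84 to 0.35) were not called. When the 60, 12 and 8 cDCs with a UMI of Ccr7 were left out, a choice made after seeing the data, the log2 fold change of Relb was 0.13 (adjusted p = 0.806), of Birc2 0.20 (adjusted p = 0.713), of Icosl 1.38 (adjusted p = 0.00387) and of Traf1 1.41 (adjusted p = 7.35e-05). The first pair was no longer called, and Icosl and Traf1 stayed past the threshold. Flt3, at 6.34 (adjusted p = 1.13e-08), and Kit, at 5.95 (adjusted p = 1.1e-08), stayed past it too. Tnf (−2.56, 0.0587), Adam17 (−1.43, 0.0889), Tnfrsf1b (−0.93, 0.157), Traf1 (2.24, 0.0524), Ltb (1.29, 0.469), Relb (1.40, 0.0576), Rel (0.93, 0.131), Birc2 (1.92, 0.126) and Ccr7 (5.90, 0.0911) lost their calls without library 1. Rel (0.69, 0.0601) lost its call and Ccr7 (4.27) moved by over 1.5 times without library 2. Ltb (3.66) and Ccr7 (6.17) moved by over 1.5 times without library 3.

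Lineage transcription factors were called in both directions, and many were not called. Of 18 cDC-linked factors in the table, 17 were tested, of which 6 were higher in cDCs, 2 higher in macrophages and 9 not called (47.1% called). Of those higher in cDCs, all but Etv3 are also cell type markers, which helped to define the classes. The cDC-linked factors had a median log2 fold change of 0.37, and without library 1, 2 or 3 the counts were 1 and 1, 7 and 2, and 7 and 3. Batf3, which cDC1 need, was 119.7, 135 and 59.9 CPM in cDCs and 44.1, 31.1 and 22.3 CPM in macrophages (adjusted p = 0.00193, log2 fold change 1.63 ± 0.24). Irf4, which cDC2 need, was 57.3, 24.8 and 18.7 CPM in cDCs and 2.94, 3.88 and 9.17 CPM in macrophages (adjusted p = 0.006, log2 fold change 3.12 ± 0.57). Irf8, which cDC1 need and macrophages share, was 562, 599.9 and 592 CPM in cDCs and 536, 425 and 283 CPM in macrophages (adjusted p = 0.136, log2 fold change 0.52, 95% interval 0.04 to 1.01). Etv3, a repressor, was 168, 291 and 124 CPM in cDCs and 79.8, 67.3 and 35.4 CPM in macrophages (adjusted p = 0.00279, log2 fold change 1.59 ± 0.25). Zeb2, a repressor listed with this group, lay with macrophages at 87.8, 60.3 and 56.2 CPM in cDCs and 478, 319.7 and 347 CPM in macrophages (adjusted p = 9.24e-05, log2 fold change −2.48 ± 0.19). Of 17 macrophage-linked factors in the table, 12 were tested, of which 1 was higher in cDCs, 8 higher in macrophages and 3 not called (75.0% called). Macrophage-linked factors had a median log2 fold change of −2.14, and without library 1, 2 or 3 the counts were 1 and 3, 1 and 9, and 1 and 11. Cebpb, which drives inflammatory myeloid genes, was 127, 373 and 367 CPM in cDCs and 1457, 2856 and 2103 CPM in macrophages (adjusted p = 6.32e-05, log2 fold change −3.01 ± 0.21). Ets2 was 16.2, 46.1 and 44.9 CPM in cDCs and 148, 204 and 172 CPM in macrophages (adjusted p = 0.000567, log2 fold change −2.56 ± 0.29). Spi1, for PU.1, which both lineages need, was 343, 284 and 535 CPM in cDCs and 268, 285 and 347 CPM in macrophages (adjusted p = 0.272, log2 fold change 0.33, 95% interval −0.09 to 0.75). Bhlhe40, a repressor of IL-10 listed with macrophages, was higher in cDCs at 341, 444 and 730.1 CPM in cDCs and 84.4, 113 and 183 CPM in macrophages (adjusted p = 0.000129, log2 fold change 2.00 ± 0.17), in each library. Batf3 (1.82, 0.0627) lost its call and Irf4 fell below the filter without library 1. Irf4 was 3.51-fold apart on pooled UMIs without library 1. Irf4 (3.87) moved by over 1.5 times without library 3.

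Receptors for uptake lay with macrophages, with a few exceptions. Of 13 scavenger and apoptotic cell receptor genes in the table, 9 were tested, of which 1 was higher in cDCs, 6 higher in macrophages and 2 not called (77.8% called). Scavenger and apoptotic cell receptor genes had a median log2 fold change of −2.02, and without library 1, 2 or 3 the counts were 0 and 4, 1 and 8, and 1 and 8. Lrp1, an endocytic receptor that also takes up myelin debris, was 26.4, 24.8 and 22.5 CPM in cDCs and 204, 382 and 250.1 CPM in macrophages (adjusted p = 8.78e-05, log2 fold change −3.29 ± 0.25). Itgb5, an integrin chain for dying cells, was 5.58, 7.10 and 0 CPM in cDCs and 281, 317 and 134 CPM in macrophages (adjusted p = 3.08e-05, log2 fold change −5.70 ± 0.33). Msr1, scavenger receptor A, was 4.06, 3.55 and 0 CPM in cDCs and 115, 116 and 131 CPM in macrophages (adjusted p = 8.11e-05, log2 fold change −5.04 ± 0.38). The exception was Timd4, a phosphatidylserine receptor, at 154, 46.1 and 198 CPM in cDCs and 18.1, 10.4 and 7.86 CPM in macrophages (adjusted p = 0.000492, log2 fold change 3.30 ± 0.37), higher in each library of cDCs. Of 7 Fc receptor genes in the table, 6 were tested, of which 1 was higher in cDCs, 5 higher in macrophages and 0 not called (100% called). Fc receptor genes had a median log2 fold change of −2.90, and without library 1, 2 or 3 the counts were 0 and 4, 1 and 5, and 1 and 5. Fcgr1, the high-affinity IgG receptor, was 124, 138 and 176 CPM in cDCs and 984, 1306 and 879 CPM in macrophages (adjusted p = 7.92e-05, log2 fold change −2.86 ± 0.21), the inhibitory Fcgr2b 27.4, 24.8 and 11.2 CPM in cDCs and 203, 173 and 120.5 CPM in macrophages (adjusted p = 0.000105, log2 fold change −2.94 ± 0.24). Fcgr3 was 19.3, 21.3 and 7.49 CPM in cDCs and 434, 541 and 208 CPM in macrophages (adjusted p = 1.77e-05, log2 fold change −4.56 ± 0.24). Fcgr4 was 16.2, 17.7 and 22.5 CPM in cDCs and 162, 142 and 102 CPM in macrophages (adjusted p = 0.0002, log2 fold change −3.03 ± 0.28). Macrophages exceeded cDCs without overlap in all 4, as in 13.1% of all tested genes. Fcgrt, the neonatal receptor that recycles IgG, was the 1 gene higher in cDCs, at 179, 85.2 and 255 CPM in cDCs and 71.8, 80.2 and 51.1 CPM in macrophages (adjusted p = 0.0356, log2 fold change 1.29 ± 0.35). Timd4 (3.55, 0.0531) and Fcgrt (1.27, 0.341) lost their calls and Msr1 (−5.90) moved by over 1.5 times without library 1.

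Complement genes were mostly higher in macrophages. Of 12 complement genes in the table, 11 were tested, of which 2 were higher in cDCs, 8 higher in macrophages and 1 not called (90.9% called). Among those called, C1qa, C1qb, C1qc, Itgam and Itgax are also cell type markers, which helped to define the classes. Complement genes had a median log2 fold change of −3.96, and without library 1, 2 or 3 the counts were 1 and 7, 2 and 8, and 2 and 8. C1qb, a chain of C1q, which opens the classical pathway, was 40.1, 21.3 and 0 CPM in cDCs and 4039, 5644 and 234 CPM in macrophages (adjusted p = 1.03e-05, log2 fold change −7.09 ± 0.31). C3, the central component, was 36.5, 14.2 and 3.74 CPM in cDCs and 448, 278 and 228 CPM in macrophages (adjusted p = 8.78e-05, log2 fold change −3.96 ± 0.30). C1qb in macrophages of library 3 was over 10-fold lower than in libraries 1 and 2. The receptor gene C3ar1 was 3.55, 3.55 and 0 CPM in cDCs and 216, 208 and 120.5 CPM in macrophages (adjusted p = 3.08e-05, log2 fold change −5.99 ± 0.35). C5ar1 was 0, 3.55 and 3.74 CPM in cDCs and 91.6, 252 and 392 CPM in macrophages, a pooled ratio of 217 (counting interval 60.0 to 1799). Cfp, for properdin, which stabilises the alternative pathway, was higher in cDCs at 221, 95.8 and 161 CPM in cDCs and 45.8, 47.9 and 79.9 CPM in macrophages (adjusted p = 0.00748, log2 fold change 1.55 ± 0.30). Cfp (1.02, 0.152) lost its call and C1qb (−8.10) and C3 (−4.78) moved by over 1.5 times without library 1. C5ar1 was 84.5-fold apart on pooled UMIs without library 1. C5ar1 was 358-fold apart on pooled UMIs without library 2.

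C-type lectins were called in both directions. Of 16 lectin genes in the table, 13 were tested, of which 5 were higher in cDCs, 8 higher in macrophages and 0 not called (100% called). Of those higher in cDCs, all but Ly75 are also cell type markers, which helped to define the classes. Lectin genes had a median log2 fold change of −2.18, and without library 1, 2 or 3 the counts were 4 and 6, 7 and 9, and 5 and 9. The counts without library 2 or 3 include members not tested over the 3 libraries. On the cDC side stood Clec9a and Cd209a, named above, and Clec10a (adjusted p = 9.38e-05, log2 fold change 3.28 ± 0.26). On the macrophage side stood the DCIR family gene Clec4a2 at 5.58, 10.6 and 7.49 CPM in cDCs and 84.9, 151 and 90.4 CPM in macrophages (adjusted p = 8.11e-05, log2 fold change −3.83 ± 0.29), and Clec4e, for Mincle, at 1.01, 24.8 and 71.1 CPM in cDCs and 89.9, 270.5 and 504 CPM in macrophages (adjusted p = 0.000821, log2 fold change −3.77 ± 0.46). Sensors of microbes were also mostly higher in macrophages. Of 26 sensor genes in the table, 14 were tested, of which 1 was higher in cDCs, 8 higher in macrophages and 5 not called (64.3% called). Sensor genes had a median log2 fold change of −1.14, and without library 1, 2 or 3 the counts were 0 and 3, 1 and 11, and 1 and 10. Tlr2 was 43.1, 49.7 and 112 CPM in cDCs and 390.2, 538 and 420.3 CPM in macrophages (adjusted p = 0.000362, log2 fold change −2.84 ± 0.30). Cd14, its co-receptor, was 144, 277 and 371 CPM in cDCs and 1190.5, 3945 and 1779.5 CPM in macrophages (adjusted p = 0.000185, log2 fold change −3.04 ± 0.27). Nlrp3, an inflammasome sensor, was 48.7, 35.5 and 78.6 CPM in cDCs and 119, 287 and 304 CPM in macrophages (adjusted p = 0.00281, log2 fold change −1.90 ± 0.30). Tlr3, a double-stranded RNA sensor of cDC1, was 34.5, 14.2 and 33.7 CPM in cDCs and 7.56, 2.59 and 3.93 CPM in macrophages (adjusted p = 0.00314, log2 fold change 2.38 ± 0.38). The DNA sensors Aim2 (adjusted p = 0.942, log2 fold change 0.04, 95% interval −0.48 to 0.56) and Tmem173, for STING (adjusted p = 0.217, log2 fold change 0.48, 95% interval −0.06 to 1.02), were not called. Tlr3 fell below the filter and Clec9a (4.26) and Clec4e (−3.05) moved by over 1.5 times without library 1. Cd209a was 28.3-fold and Tlr3 7.60-fold apart on pooled UMIs without library 1. Clec4e (−4.69) moved by over 1.5 times without library 3. Cd209a was 219-fold apart on pooled UMIs without library 3.

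Of the genes of the type I interferon response some were called, mostly as higher in macrophages, and the share can be read against 17.5% of all tested genes. Of 16 type I interferon genes in the table, 14 were tested, of which 1 was higher in cDCs, 3 higher in macrophages and 10 not called (28.6% called). Type I interferon genes had a median log2 fold change of −0.45, and without library 1, 2 or 3 the counts were 1 and 0, 1 and 4, and 1 and 3. Isg15 was 199.9, 103 and 562 CPM in cDCs and 198, 209.7 and 1025 CPM in macrophages (adjusted p = 0.133, log2 fold change −0.58, 95% interval −1.11 to −0.05). Library 3 was the highest for Isg15 in both classes. Ifi205 was higher in cDCs at 112, 42.6 and 341 CPM in cDCs and 9.66, 6.47 and 85.1 CPM in macrophages (adjusted p = 0.0008, log2 fold change 2.69 ± 0.33), and its relative Ifi204 in macrophages at 73.6, 46.1 and 44.9 CPM in cDCs and 173, 157 and 156 CPM in macrophages (adjusted p = 0.00194, log2 fold change −1.50 ± 0.22). Of 14 interferon-gamma genes in the table, 13 were tested, of which 1 was higher in cDCs, 6 higher in macrophages and 6 not called (53.8% called). Interferon-gamma genes had a median log2 fold change of −0.74, and without library 1, 2 or 3 the counts were 0 and 0, 1 and 4, and 1 and 6. Of the guanylate-binding proteins, which act against intracellular microbes, Gbp2 was 256, 217 and 322 CPM in cDCs and 452, 403 and 693 CPM in macrophages (adjusted p = 0.00526, log2 fold change −0.94 ± 0.17). Gbp7 was 104, 49.7 and 56.2 CPM in cDCs and 209.6, 109 and 144 CPM in macrophages (adjusted p = 0.00552, log2 fold change −1.13 ± 0.20). Ifi204 (−1.76, 0.0508), Gbp2 (−0.99, 0.0966) and Gbp7 (−1.23, 0.117) lost their calls without library 1. Ifi205 (3.35) moved by over 1.5 times without library 3.

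Lysosome genes were mostly higher in macrophages. Of 20 lysosome genes in the table, 20 were tested, of which 1 was higher in cDCs, 15 higher in macrophages and 4 not called (80.0% called). Lysosome genes had a median log2 fold change of −1.48, and without library 1, 2 or 3 the counts were 0 and 3, 1 and 15, and 1 and 18. The protease gene Ctsb was 177, 231 and 367 CPM in cDCs and 1582, 2425 and 1274 CPM in macrophages (adjusted p = 0.000403, log2 fold change −2.80 ± 0.30). Ctsd was 42.1, 28.4 and 52.4 CPM in cDCs and 629, 1403 and 447 CPM in macrophages (adjusted p = 0.00019, log2 fold change −4.12 ± 0.37). Lgmn, the asparagine-specific protease, was 53.8, 188 and 191 CPM in cDCs and 688, 1887 and 602 CPM in macrophages (adjusted p = 0.000821, log2 fold change −2.94 ± 0.36). Cst3, for cystatin C, which blocks such proteases, was the exception at 10541, 14422 and 11910.5 CPM in cDCs and 4452, 7381 and 3102 CPM in macrophages (adjusted p = 0.000957, log2 fold change 1.38 ± 0.17). Cstb, for the intracellular stefin B, was 179, 220.1 and 273 CPM in cDCs and 784, 1311 and 1254 CPM in macrophages (adjusted p = 7.81e-05, log2 fold change −2.29 ± 0.17). Lgmn (−2.49, 0.0562) and Cst3 (1.47, 0.0662) lost their calls without library 1.

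Iron and lipid genes had no member called higher in cDCs. Of 9 iron and haem genes in the table, 6 were tested, of which 0 were higher in cDCs, 6 higher in macrophages and 0 not called (100% called). Iron and haem genes had a median log2 fold change of −2.02, and without library 1, 2 or 3 the counts were 0 and 4, 0 and 6, and 0 and 7. The count without library 3 includes a member not tested over the 3 libraries. Fth1, for ferritin heavy chain, was 4324, 4827 and 4411 CPM in cDCs and 13757, 18718 and 11095 CPM in macrophages (adjusted p = 9.99e-05, log2 fold change −1.65 ± 0.13). Hmox1, which breaks down haem, was 7.10, 3.55 and 0 CPM in cDCs and 68.9, 86.7 and 140.1 CPM in macrophages (adjusted p = 0.000574, log2 fold change −3.84 ± 0.44). Slc11a1, a metal transporter of phagosomes, was 0.507, 3.55 and 7.49 CPM in cDCs and 108, 175 and 157 CPM in macrophages (adjusted p = 8.11e-05, log2 fold change −6.07 ± 0.46). Of 17 lipid genes in the table, 13 were tested, of which 0 were higher in cDCs, 9 higher in macrophages and 4 not called (69.2% called). Lipid genes had a median log2 fold change of −1.03, and without library 1, 2 or 3 the counts were 0 and 5, 0 and 9, and 0 and 11. Apoe, a lipid carrier, was 40.6, 17.7 and 15.0 CPM in cDCs and 20068, 58317 and 1653 CPM in macrophages (adjusted p = 4.29e-05, log2 fold change −9.50 ± 0.60). Trem2, whose promoter is printed above, was 7.61, 7.10 and 3.74 CPM in cDCs and 556, 1219 and 147 CPM in macrophages (adjusted p = 1.33e-05, log2 fold change −6.38 ± 0.31). Abca1, a cholesterol exporter, was 18.8, 10.6 and 22.5 CPM in cDCs and 286, 316 and 118 CPM in macrophages (adjusted p = 0.000192, log2 fold change −3.81 ± 0.35). Of the macrophages, those of library 3 were the lowest for Apoe, Trem2 and Abca1. Cd9, a tetraspanin, was 123, 323 and 202 CPM in cDCs and 108, 194 and 36.7 CPM in macrophages (adjusted p = 0.119, log2 fold change 0.94, 95% interval 0.12 to 1.77). Hmox1 (−5.75), Slc11a1 (−4.85) and Apoe (−10.32) moved by over 1.5 times without library 1. Apoe (−8.57) moved by over 1.5 times without library 2. Slc11a1 (−6.86) moved by over 1.5 times without library 3.

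No gene of the oxidative burst or of glycolysis was called higher in cDCs. Of 11 oxidative burst and killing genes in the table, 9 were tested, of which 0 were higher in cDCs, 7 higher in macrophages and 2 not called (77.8% called). Oxidative burst and killing genes had a median log2 fold change of −1.85, and without library 1, 2 or 3 the counts were 0 and 4, 0 and 7, and 0 and 8. Cybb, the core of the phagocyte oxidase, was 272, 114 and 228 CPM in cDCs and 1061, 796 and 742 CPM in macrophages (adjusted p = 0.000418, log2 fold change −2.12 ± 0.23). Lyz2, for lysozyme, was 209, 561 and 790 CPM in cDCs and 7382, 15522 and 6835 CPM in macrophages (adjusted p = 0.000144, log2 fold change −4.37 ± 0.37). Acod1, which makes itaconate, was 6.09, 0 and 37.4 CPM in cDCs and 141, 126 and 330 CPM in macrophages (adjusted p = 0.000243, log2 fold change −4.13 ± 0.40). Lyz2 was seen in 97.6 ± 1.76% of macrophages and 21.4 ± 6.38% of cDCs thinned to 2000 UMIs, against 2.15 ± 2.80% of B cells. Of 15 glycolytic genes in the table, 15 were tested, of which 0 were higher in cDCs, 8 higher in macrophages and 7 not called (53.3% called). Glycolytic genes had a median log2 fold change of −0.68, and without library 1, 2 or 3 the counts were 0 and 2, 0 and 7, and 1 and 8. Tpi1 was 155, 88.7 and 93.6 CPM in cDCs and 388, 274 and 457 CPM in macrophages (adjusted p = 0.00129, log2 fold change −1.68 ± 0.23). Slc16a3, the lactate exporter, was 22.3, 28.4 and 48.7 CPM in cDCs and 86.5, 105 and 186 CPM in macrophages (adjusted p = 0.000526, log2 fold change −1.93 ± 0.22). Ldha, which makes lactate, was 393, 486 and 595 CPM in cDCs and 394, 469 and 834 CPM in macrophages (adjusted p = 0.644, log2 fold change −0.14, 95% interval −0.54 to 0.25). Of 10 enzymes linked to T cell restraint in the table, 6 were tested, of which 2 were higher in cDCs, 3 higher in macrophages and 1 not called (83.3% called). Enzymes linked to T cell restraint had a median log2 fold change of −2.38, and without library 1, 2 or 3 the counts were 2 and 3, 2 and 3, and 2 and 4. Arg2, an arginase, was 1.01, 3.55 and 3.74 CPM in cDCs and 48.7, 172 and 69.4 CPM in macrophages (adjusted p = 7.86e-05, log2 fold change −5.23 ± 0.39). Arg1 was 1.52, 0 and 0 CPM in cDCs and 315, 164 and 118 CPM in macrophages, a pooled ratio of 197 (counting interval 67.2 to 957). On the cDC side were Kynu, which acts in tryptophan breakdown, at 49.2, 60.3 and 63.7 CPM in cDCs and 6.30, 10.4 and 6.55 CPM in macrophages (adjusted p = 0.000356, log2 fold change 2.90 ± 0.30), and Il4i1, an amino acid oxidase of mature cDCs, at 245, 390.5 and 93.6 CPM in cDCs and 2.10, 0 and 1.31 CPM in macrophages. Ido1 had no UMI in either class. Of 13 eicosanoid genes in the table, 9 were tested, of which 0 were higher in cDCs, 2 higher in macrophages and 7 not called (22.2% called). Eicosanoid genes had a median log2 fold change of −0.36, and without library 1, 2 or 3 the counts were 0 and 1, 0 and 3, and 0 and 4. Pla2g7, which breaks down platelet-activating factor, was 2.54, 56.8 and 18.7 CPM in cDCs and 219, 672 and 515 CPM in macrophages (adjusted p = 0.000193, log2 fold change −4.75 ± 0.43). Il4i1 (8.02) and Pla2g7 (−4.01) moved by over 1.5 times without library 1. Arg1 was at least 24.7-fold apart on pooled UMIs without library 1. Pla2g7 (−5.70) moved by over 1.5 times without library 2. Lyz2 (−4.97) and Acod1 (−4.74) moved by over 1.5 times without library 3.

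All tested matrix and growth factor genes were higher in macrophages. Of 16 matrix and growth factor genes in the table, 12 were tested, of which 0 were higher in cDCs, 12 higher in macrophages and 0 not called (100% called). Matrix and growth factor genes had a median log2 fold change of −4.05, and without library 1, 2 or 3 the counts were 0 and 9, 0 and 13, and 0 and 14. The counts without library 2 or 3 include members not tested over the 3 libraries. Fn1, for fibronectin, was 12.2, 14.2 and 41.2 CPM in cDCs and 567, 707 and 753 CPM in macrophages (adjusted p = 3.08e-05, log2 fold change −5.14 ± 0.30). Tgm2, a cross-linking enzyme, was 51.8, 42.6 and 105 CPM in cDCs and 591, 695 and 732 CPM in macrophages (adjusted p = 7.27e-05, log2 fold change −3.41 ± 0.25). Vegfa, the vessel growth factor, was 10.7, 14.2 and 3.74 CPM in cDCs and 213, 307 and 78.6 CPM in macrophages (adjusted p = 3.53e-05, log2 fold change −4.34 ± 0.26). Tgfbi, a matrix protein induced by TGF-beta, was 151, 277 and 577 CPM in cDCs and 1621, 1430.1 and 1717 CPM in macrophages (adjusted p = 0.00103, log2 fold change −2.47 ± 0.32). F10, for coagulation factor X, was 7.61, 0 and 11.2 CPM in cDCs and 104, 129 and 137 CPM in macrophages (adjusted p = 0.000235, log2 fold change −4.00 ± 0.39). In all of these named genes macrophages exceeded cDCs without overlap, as in 13.1% of all tested genes.

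Adhesion genes were called in both directions. Of 19 integrin and adhesion genes in the table, 17 were tested, of which 5 were higher in cDCs, 6 higher in macrophages and 6 not called (64.7% called). Integrin and adhesion genes had a median log2 fold change of −0.21, and without library 1, 2 or 3 the counts were 3 and 1, 5 and 6, and 5 and 7. Itgae, the CD103 chain of cDC1, was 66.5, 81.6 and 213 CPM in cDCs and 2.94, 0 and 6.55 CPM in macrophages (adjusted p = 9.38e-05, log2 fold change 4.98 ± 0.39). Alcam, a ligand of CD6 on T cells, was 123, 78.1 and 82.4 CPM in cDCs and 25.6, 22.0 and 24.9 CPM in macrophages (adjusted p = 0.00069, log2 fold change 2.02 ± 0.24). Cd44, which binds hyaluronan, was 66.0, 153 and 105 CPM in cDCs and 154, 268 and 215 CPM in macrophages (adjusted p = 0.00634, log2 fold change −1.04 ± 0.19). Of 13 genes of actin and migration in the table, 13 were tested, of which 4 were higher in cDCs, 0 higher in macrophages and 9 not called (30.8% called). Genes of actin and migration had a median log2 fold change of 0.39, and without library 1, 2 or 3 the counts were 2 and 0, 3 and 0, and 6 and 0. Lsp1, an actin-binding protein, was 1053, 1452 and 1269 CPM in cDCs and 165, 206 and 381 CPM in macrophages (adjusted p = 0.000225, log2 fold change 2.41 ± 0.23). Dock10, an activator of Cdc42, was 197, 199 and 179.7 CPM in cDCs and 67.6, 56.9 and 72.0 CPM in macrophages (adjusted p = 0.000957, log2 fold change 1.55 ± 0.20). Cdc42 itself, a small GTPase, was not called (adjusted p = 0.604, log2 fold change 0.14, 95% interval −0.21 to 0.48). Alcam (1.78, 0.0579), Cd44 (−0.90, 0.145) and Dock10 (1.57, 0.0552) lost their calls without library 1.

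Genes of division and of stress were tested as well. Of 15 cell cycle genes in the table, 6 were tested, of which 3 were higher in cDCs, 0 higher in macrophages and 3 not called (50.0% called). Cell cycle genes had a median log2 fold change of 0.41, and without library 1, 2 or 3 the counts were 0 and 0, 6 and 0, and 3 and 0. The counts without library 2 include members not tested over the 3 libraries. Tubb5, a tubulin, was 275, 302 and 431 CPM in cDCs and 196, 167 and 134 CPM in macrophages (adjusted p = 0.026, log2 fold change 0.98 ± 0.24). Mcm6, a replication helicase subunit, was 39.6, 31.9 and 37.4 CPM in cDCs and 11.3, 9.06 and 31.4 CPM in macrophages (adjusted p = 0.0415, log2 fold change 1.33 ± 0.37). The division marker Mki67 was 23.8, 10.6 and 7.49 CPM in cDCs and 18.5, 14.2 and 27.5 CPM in macrophages (adjusted p = 0.872, log2 fold change −0.15, 95% interval −1.11 to 0.81). Of 12 immediate-early and stress genes in the table, 12 were tested, of which 0 were higher in cDCs, 1 higher in macrophages and 11 not called (8.33% called). Immediate-early and stress genes had a median log2 fold change of −0.37, and without library 1, 2 or 3 the counts were 0 and 0, 0 and 1, and 0 and 6. Dusp1, a phosphatase that dampens MAP kinases, was 277, 479 and 1363 CPM in cDCs and 817, 1292 and 1577 CPM in macrophages (adjusted p = 0.0226, log2 fold change −1.07 ± 0.26). Jun was 326, 213 and 779 CPM in cDCs and 394, 379 and 716 CPM in macrophages (adjusted p = 0.383, log2 fold change −0.30, 95% interval −0.77 to 0.17). Over the 30 lists, 442 distinct genes are in the table, 360 were tested and 212 called, 58 higher in cDCs and 154 higher in macrophages. That is 58.9% of those tested, against 17.5% of all tested genes, and the lists were chosen with earlier results of these data known. Tubb5 (1.28, 0.103), Mcm6 (0.89, 0.475) and Dusp1 (−0.79, 0.319) lost their calls without library 1.

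**Figure D5:**
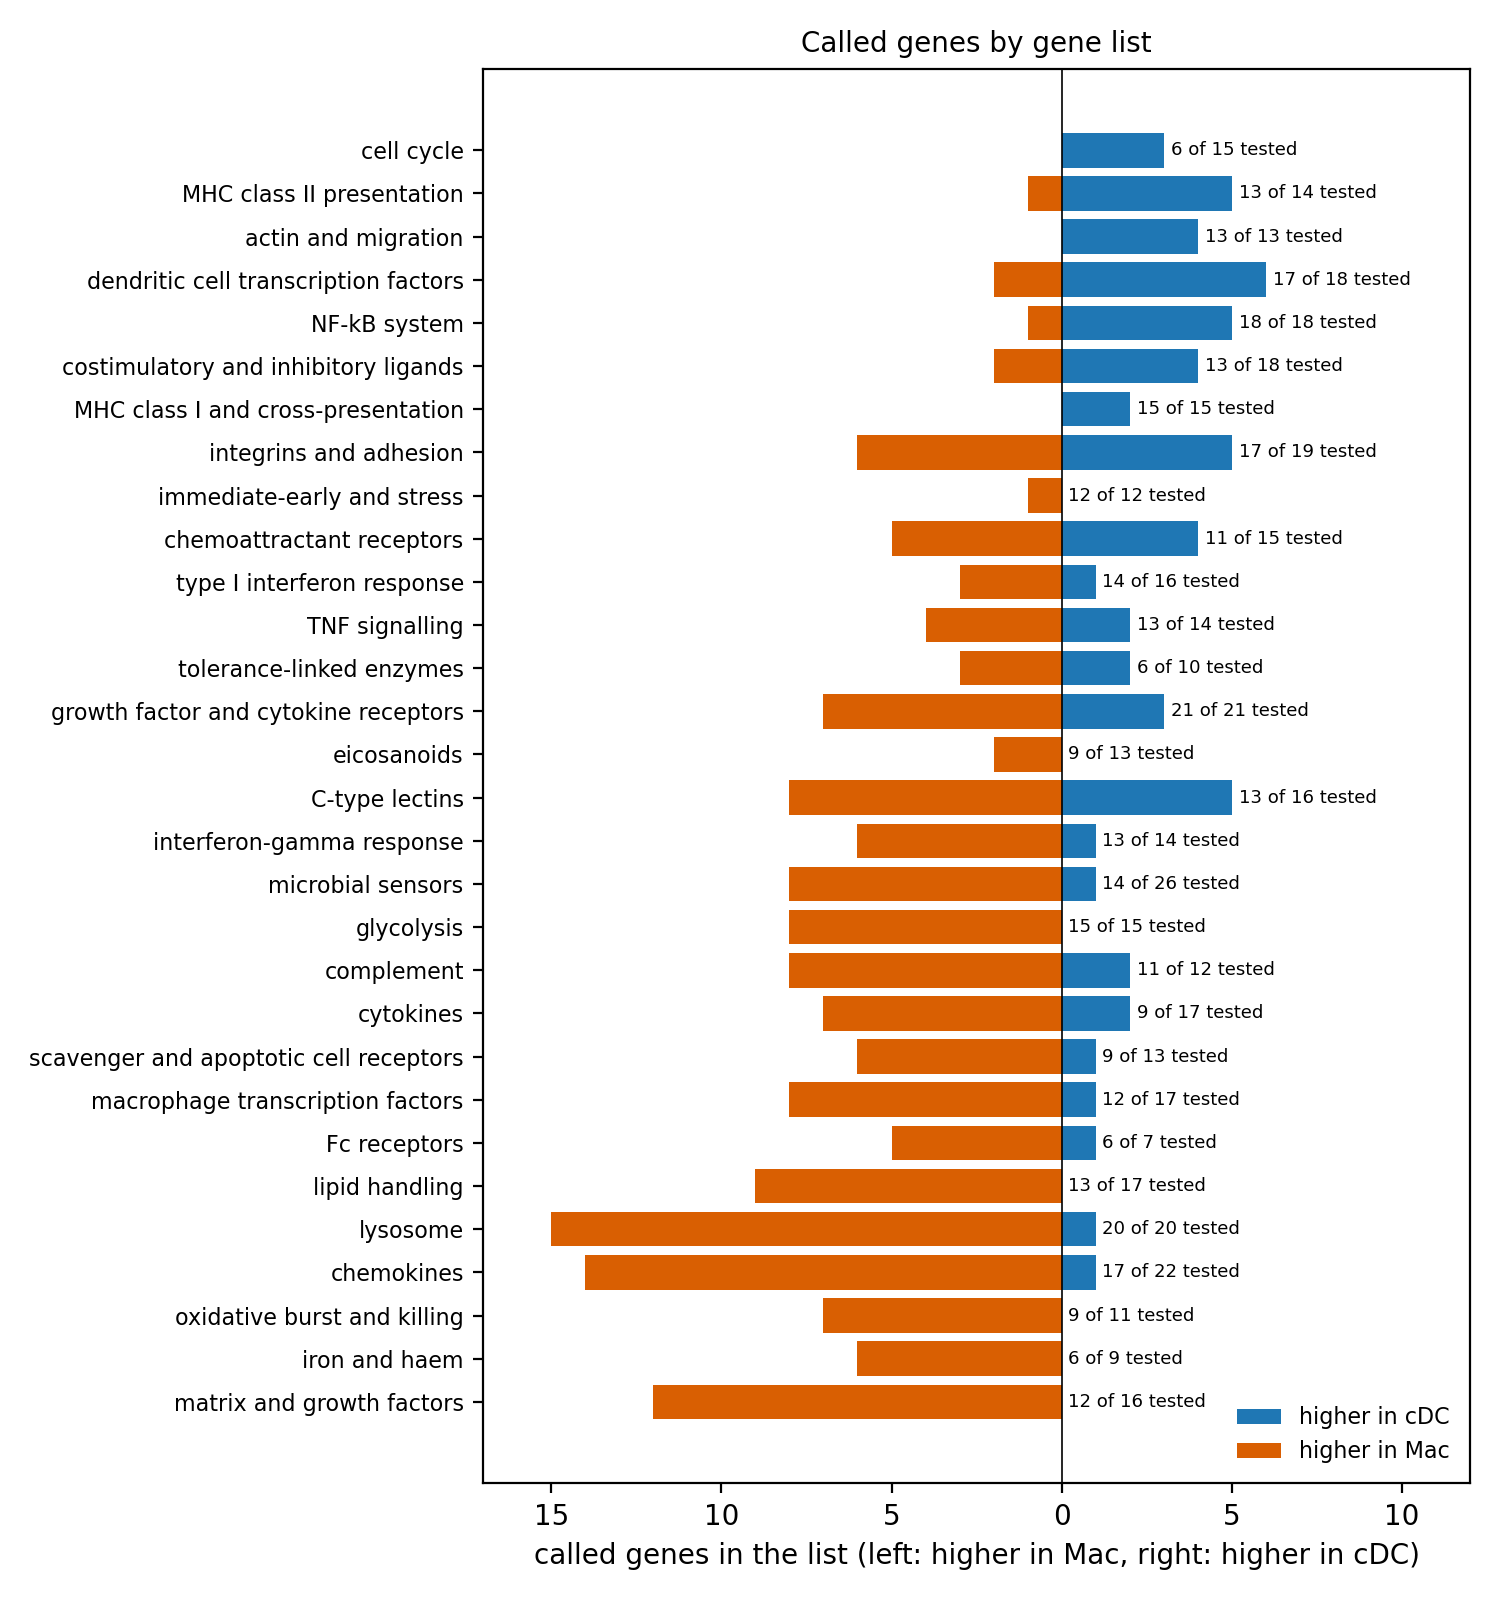
Number of called genes in each of 30 gene lists, to the right where higher in cDC (blue) and to the left where higher in Mac (orange), with the number tested of those in the table beside each bar. The lists are ordered by the balance of the 2 directions: matrix and growth factors has 12 called genes, all on the Mac side, and actin and migration 4, all on the cDC side.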

How the data were processed

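Single-cell RNA-seq of nerve leukocytes was analysed from the table of raw UMI counts that the authors deposited, with their table of cell classes. Cell Ranger 5.0.1, Seurat 4.0 and build mm10 are named in the submitters' processing notes, with no role stated. The mitochondrial percent per cell is the authors' deposited value. Totals, gene numbers and mitochondrial percent recomputed from the counts equalled the deposited ones in all 11640 cells, the last within 0.001 percentage points. No cell holds over 2997 genes. Library names were matched to samples by their cell numbers, 6033, 2333 and 3274.

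Counts were summed per class and library, which gave 6 sums. They were tested with edgeR 4.0.16 (R 4.3.3; TMM, filterByExpr, quasi-likelihood F-test, Benjamini-Hochberg adjustment over 6419 genes, threshold 0.05) with the library as a block. Both classes come from the same libraries, and their deviations correlated at 0.59, 0.41 and 0.61 in libraries 1, 2 and 3. Errors are standard errors of the log2 fold change, taken as its absolute value over the square root of edgeR's F statistic. Intervals are at 95%, from the t distribution with edgeR's total degrees of freedom. A class with 0 UMIs of a gene was set to 3 UMIs over the class for a lower bound of the fold, and 1 to 3 UMIs were given a ratio with an exact counting interval, which covers counting error only. Promoters are from RefSeq (GRCm38.p6) and gene coordinates from GENCODE M21. Scrublet in scanpy 1.11.5 marked 84 cells (0.722%) as doublets, of them 5 in the compared classes, which were kept.

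Genes named besides cell type markers are the 12 with the largest fitted change in each direction among called genes that did not overlap between classes and had at least 20 CPM in the higher class, with antigen receptor, ribosomal, mitochondrial, Gm-numbered and Rik genes left out. From each list the called members with the largest change, and others whose role is described, are named, apart from some members that are not reported here. The classes compared, the markers and the lists were chosen with earlier results of these data known. Alternatives were DESeq2 1.42.0, limma 3.58.1 on mean log2 values per cell, other scaling and filters, and leaving out each library. The test was also tried on simulated counts, with gene rates and dispersion taken from these sums, and the outcome is not given here.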

Additional observations from a re-analysis of the deposited data

How the results depend on the processing

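Of 6419 tested genes, 446 and 675 were called higher in cDCs and in macrophages, and 207 and 328 without the replicate block. Other settings tested other numbers of genes, so their counts are not directly comparable. With 8 classes in 1 fit, 823 and 1338 of 10895 were called, and with no filter on low counts 776 and 1119 of 14417. In cells under 2500 genes, 248 and 364 of 4599 were called, and at equal UMI totals 308 and 434 of 3649. Leaving out library 1, 2 or 3 in turn, with 5310, 8260 and 7867 genes tested, gave 103 to 688 and 139 to 922. DESeq2 (319 and 454), RLE size factors (439 and 639), equal cells in limma (396 and 456) and cells without Scrublet doublets (442 and 674) stayed within 1.5 times for both. No gene was called in opposite directions by any of these. Over all list members 212 were called, against 135 without the replicate block and 103 to 255 with a library left out. Of 171 named genes, 27 lost their call without the replicate block and 4 in DESeq2. Without library 1, 163 of them were in the fit and 43 of these lost their call, while the rest, such as Adam23 and Saa3, fell below the filter. In cells under 2500 genes, 144 were in the fit and 7 of these lost their call. At equal UMI totals, 147 were in the fit and 1 lost its call. Alternatives chosen after seeing the data gave 462 and 760 of 6356 genes without the cDCs that hold Ccr7. They gave 367 and 552 of 4857 without cells that hold T or B cell markers, and 453 and 675 of 6434 with renamed rows merged. Among the named genes, signs flipped only for those not called over the 3 libraries: with 8 classes in 1 fit Aim2 −0.0317, Cd74 −0.0549, then with cells under 2500 genes Ccr2 0.12, Cd274 0.47, Cdc42 −0.0774, Csf2ra 0.0267, Csf2rb 0.27, Nfkb1 0.00617, then without the replicate block Cd274 0.0581, then with equal cells in limma Cd274 0.14, Csf2ra 0.11, Csf2rb 0.0882, Ldha 0.0226, Nfkb1 0.0946, Rela 0.00372, then in cells without T or B cell markers Cd274 0.0052, then in cDCs without Ccr7 Ldha 0.0629. With a library left out in turn, the log2 fold changes that flipped ranged, for Aim2 −0.15 to 0.16, for Cd274 −0.49 to 0.22, for Cd74 −0.30 to 0.92, for Csf2ra −0.28 to 0.0541, for H2-DMb1 −0.11 to 0.41, for H2-Eb1 −0.10 to 1.20, for Ldha −0.22 to 0.0316, for Mki67 −0.0833 to 0.22, for Rela −0.56 to 0.0482. Of these flipped values Cd74 without library 3 passed the threshold. Values with equal cells in limma are differences of mean log2 values per cell and do not compare in size with the others. The causes were not tested. Shares of cells with a UMI moved by more than their spread over libraries when cells were thinned to 1000 UMIs, in cDCs Flt3 15.3%, Il1b 48.9%, Cd209a/Mgl2/Clec10a 16.2%, Ccr7/Fscn1/Il4i1 28.3% and in macrophages Lyz2 95.1%, Chil1 45.4%, Tnf 8.64%, Il1b 55.1%. Unthinned, they moved in cDCs Flt3 59.1%, Lyz2 34.2%, Chil1 0.575%, Xcr1/Clec9a 35.5%, Cd209a/Mgl2/Clec10a 33.3%, Ccr7/Fscn1/Il4i1 46.0% and in macrophages Flt3 1.22%, Chil1 76.7%, Thbs1 31.7%, Tnf 34.7%, Xcr1/Clec9a 4.05%, Cd209a/Mgl2/Clec10a 8.06%, Ccr7/Fscn1/Il4i1 5.05%. Library 2 held 28 cDCs and library 3 held 34, which limits what can be seen for genes of low counts.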

Other observations

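Some gene names held UMIs only in library 3 and others only in libraries 1 and 2. Of genes with at least 200 UMIs, 138 were at 0 in library 3 and 146 at 0 in libraries 1 and 2, and 128 pairs of old and new names were merged in an alternative. Ifi30, a reductase for class II presentation, had 755 UMIs in cDCs and 916 in macrophages of library 3 and 0 in libraries 1 and 2, so it was not tested. Macrophages outnumbered cDCs in each library.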
